A study of Homo sapiens with 12 samples.

Results

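The DT-resistant line is a daughter of the human melanoma cell line WM1366 that was kept in dabrafenib, an inhibitor of the kinase BRAF, together with trametinib, an inhibitor of the kinase MEK. It was compared with its drug-sensitive parent, which carries an oncogenic NRAS mutation and was cultured in the solvent DMSO. The comparison uses the 3 libraries labelled DT-resistant and the 3 labelled sensitive, which are 6 of the 12 libraries of the series, and covers all genes. The other 6 libraries are 3 of a line kept in vemurafenib and cobimetinib (VC-resistant) and 3 of a line kept in encorafenib and binimetinib (EB-resistant), which are further pairs of a BRAF and a MEK inhibitor. They were part of the shared fit of all 12 libraries, which set the filter, the scaling and the estimate of spread for every test. Their levels are given only where the DT-resistant line was compared with them directly. Each drug pair has 1 line, and resistance, the presence of drug and culture history differ together between a resistant line and the parent and cannot be told apart. Standard errors and adjusted p-values therefore measure the spread between 3 experiments within a line, estimated jointly over the 4 groups. They do not measure the spread between separately derived lines. The labels state no drug dose. RNA came from whole cultures, in which fewer cells of a type and less RNA per cell cannot be told apart.

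In cells with mutant NRAS, RAF kinases activate MEK, MEK activates ERK, and ERK drives a set of transcripts that includes its own feedback inhibitors. These inhibitors are the DUSP phosphatases, which dephosphorylate ERK, and the Sprouty and SPRED proteins, which act nearer to the receptor. Melanoma cells under RAF and MEK inhibitors are known to move between melanocytic, neural crest-like and dedifferentiated states, and their interferon, antigen presentation, matrix and receptor genes are the ones most often followed in resistance.

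Counts assigned to genes summed to between 40491309 and 54495132 per library over the series and to between 43776602 and 50812813 over the 6 libraries compared. Of 23497 genes in the table, 17114 had enough counts to be tested. Levels are in CPM, which sets each count against the scaled total of its library, and are listed for replicates 2, 5 and 6 in that order; CPM are not compared between genes. A gene rose or fell where its log2 fold change (log2FC, given ± standard error) passed an adjusted p of 0.05 in edgeR's quasi-likelihood test. In DT-resistant against sensitive cells 5106 genes rose, 29.8% of those tested, and 5010 fell, 29.3%, so that 59.1% changed. By at least 2-fold, 1963 rose (11.5%) and 1810 fell (10.6%), and the median log2FC of all genes was -0.0054. Counts within a gene group are to be read against these shares. Groups can share genes, so their counts are not independent. CANX is counted both for MHC class I presentation and for endoplasmic reticulum folding. GBP1 is counted both for the interferon response and for the guanylate-binding proteins. Counts against another resistant line have their own shares. Over all genes 8.71% were higher and 7.08% lower than in VC-resistant cells, and 28.8% and 28.4% than in EB-resistant cells. For 32% of genes every DT-resistant library lay above every sensitive library, and for 31.7% below.

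DT-resistant replicate 2 stood apart from replicates 5 and 6 in particular gene groups. Over all genes it was the highest of the 3 DT-resistant libraries for 39.8% and the lowest for 40.0%. It was the highest for 44 of 50 interferon-response genes, 22 of 23 genes for MHC class I and 25 of 32 genes of endoplasmic reticulum folding and stress. For 41 of 43 DNA replication genes and 35 of 38 mitotic genes it was the lowest. Sensitive replicate 2 was likewise the lowest sensitive library for 43 of 43 DNA replication genes and 28 of 38 mitotic genes. The counts and medians of those 5 groups against sensitive cells are given with and without DT-resistant replicate 2, and those of the replication and mitotic genes also without sensitive replicate 2.

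Transcripts that ERK induces were lower in the DT-resistant line. Of 26 such genes tested, 1 rose and 18 fell, with a median log2FC of -0.71. Without DT-resistant replicate 2, or without sensitive replicate 5, 2 rose, since IER3 was then called (0.37 and 0.35). DUSP6, the ERK phosphatase of the cytoplasm, stood at 108, 112 and 100.1 CPM in sensitive libraries and at 15.8, 22.1 and 13.3 CPM in DT-resistant libraries (log2FC -2.64 ± 0.18, adjusted p = 5.86e-08). DUSP5, a nuclear ERK phosphatase, stood at 242, 192 and 133 CPM in sensitive and 30.0, 30.7 and 26.9 CPM in DT-resistant libraries (log2FC -2.695 ± 0.29, adjusted p = 3.14e-05). For both phosphatases the groups were far apart and no library overlapped. DUSP4, a related nuclear phosphatase, fell less (log2FC -1.18 ± 0.15, adjusted p = 1.18e-05).

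Within the Sprouty and SPRED families the members differed. SPRY4 was at 56.5, 50.1 and 44.2 CPM in sensitive and 22.8, 23.1 and 15.2 CPM in DT-resistant libraries (log2FC -1.30 ± 0.23, adjusted p = 0.000499), and SPRED3 at 23.6, 18.9 and 16.8 and 3.64, 4.94 and 4.51 CPM (log2FC -2.18 ± 0.15, adjusted p = 2.3e-08). SPRED1 fell from 86.6 ± 4.43 to 59.7 ± 5.15 CPM (mean ± SD, n = 3 here and throughout; log2FC -0.54 ± 0.093, adjusted p = 0.000163). SPRY2 was at 89.9, 82.3 and 80.0 CPM in sensitive and 94.8, 86.8 and 68.2 CPM in DT-resistant libraries, with overlapping groups and no call (log2FC -0.01 ± 0.10, adjusted p = 0.913). SPRED2 (log2FC -0.16 ± 0.085, adjusted p = 0.123) and the low SPRY1 (log2FC 0.17 ± 0.29, adjusted p = 0.65) were not called either, although SPRED2 was called lower without sensitive replicate 6 (-0.23, adjusted p = 0.0366).

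CCND1, which encodes cyclin D1 and links the pathway to cell cycle entry, was at 394, 435 and 435 CPM in sensitive and at 128, 148 and 137 CPM in DT-resistant libraries (log2FC -1.61 ± 0.12, adjusted p = 5e-08). The early response transcription factor EGR1 was at 9.97, 7.90 and 5.40 and 0.0851, 0.485 and 0.622 CPM (log2FC -4.29 ± 0.91, adjusted p = 0.00267). FOSL1, an AP-1 subunit stabilised by ERK, went from 485 ± 18.7 to 162 ± 21.1 CPM (log2FC -1.59 ± 0.14, adjusted p = 8.53e-07). Every DT-resistant library was below every sensitive library for these 3 genes. PHLDA1, a pleckstrin homology domain protein (log2FC -1.87 ± 0.13, adjusted p = 3.6e-08), EMP1, a membrane protein (log2FC -1.47 ± 0.10, adjusted p = 2.1e-08), and EPHA2, an ephrin receptor (log2FC -0.77 ± 0.083, adjusted p = 1.73e-06), fell as well. SPHK1, a sphingosine kinase, fell by 0.74 on the log2 scale. The ETS factors ETV4, ETV1 and ETV5, which carry FGF and ERK output, had log2FC of -0.69 ± 0.084, -0.67 ± 0.13 and -0.55 ± 0.11, smaller than those of the phosphatases. HBEGF, a ligand of the EGF receptor, and EPHA4, an ephrin receptor, fell by 0.50 and 0.38, the latter with an adjusted p of 0.0539 without sensitive replicate 2.

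MAFF, a small MAF transcription factor, was the gene of the group that rose, from 72.5, 58.2 and 44.99 to 137, 117 and 119.9 CPM (log2FC 1.09 ± 0.26, adjusted p = 0.00469). MYC was at 93.4, 108 and 83.9 CPM in sensitive and 169, 127 and 84.9 CPM in DT-resistant libraries and was not called (log2FC 0.42 ± 0.31, adjusted p = 0.271). IER3, an early response gene (log2FC 0.26 ± 0.12, adjusted p = 0.0808), LIF, a cytokine (log2FC -0.20 ± 0.19, adjusted p = 0.397), and FOS, an AP-1 subunit (log2FC -1.78 ± 1.09, adjusted p = 0.189), were not called. FOS was at 0.914, 1.59 and 1.33 and 0.106, 0.419 and 0.599 CPM, and was called lower in a fit of the 6 libraries alone (-1.77, adjusted p = 0.00838).

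**Figure D1:**
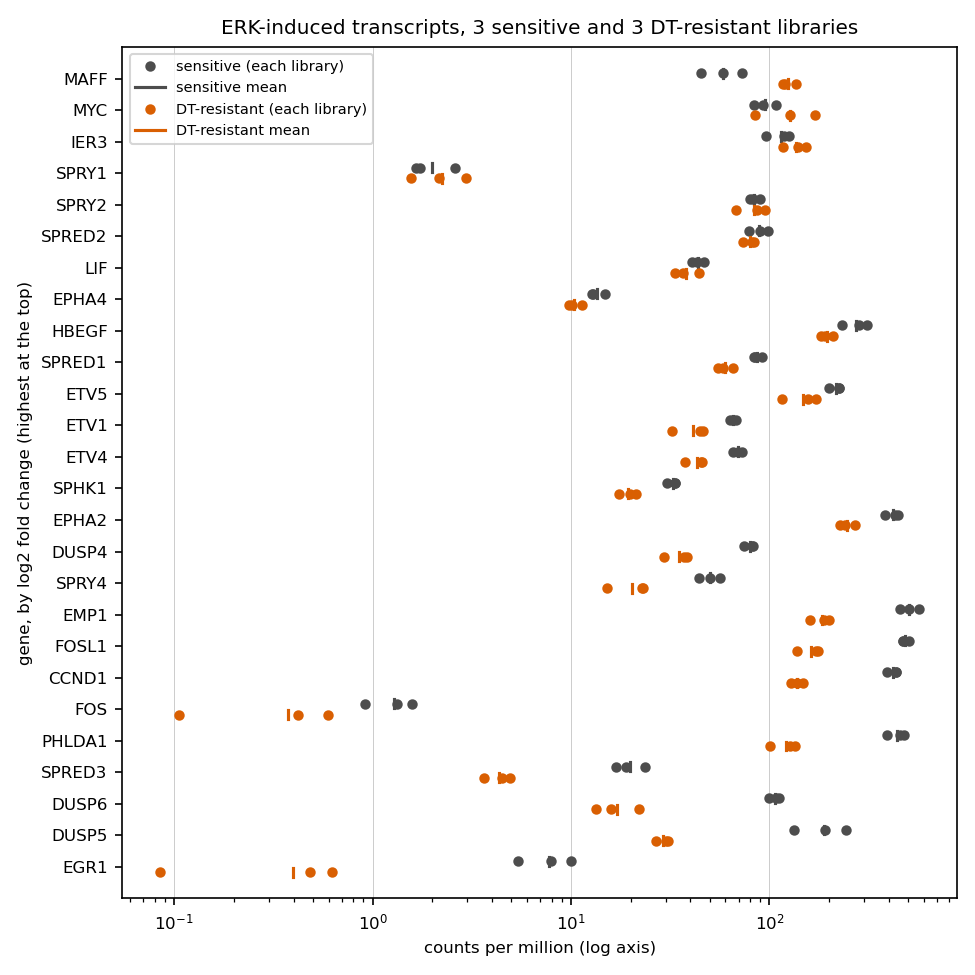
CPM on a log axis for the 26 ERK-induced transcripts tested, with the highest log2FC at the top; points are the 3 sensitive and 3 DT-resistant libraries and ticks are group means. The 18 genes that fell have their DT-resistant points to the left of the sensitive ones, while those of MAFF lie to the right.

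The depth of this decline differed from both other resistant lines in direct tests. Against VC-resistant cells, 3 of the 26 ERK-induced genes were higher in DT-resistant cells (8.71% of all genes were) and 12 were lower (7.08% of all genes). DUSP5 was at 225, 133 and 168 CPM in VC-resistant libraries, above every DT-resistant library (DT-resistant against VC-resistant log2FC -2.59 ± 0.29, adjusted p = 0.000293), and SPRY4 at 55.4, 43.5 and 37.3 CPM (log2FC -1.16 ± 0.23, adjusted p = 0.00563). Against EB-resistant cells, 19 were higher (28.8% of all genes) and 4 lower (28.4% of all genes), or 2 without DT-resistant replicate 2 or 5. SPRY4 was at 1.44, 0.509 and 0.861 CPM and CCND1 at 46.5, 30.9 and 35.3 CPM in EB-resistant libraries, below every DT-resistant library (DT-resistant against EB-resistant log2FC 4.44 ± 0.30, adjusted p = 3.09e-07 and log2FC 1.88 ± 0.12, adjusted p = 1.54e-08). EGR1 was at 0.500, 1.36 and 5.11 CPM in EB-resistant libraries (log2FC -2.55 ± 0.93, adjusted p = 0.0408), a call that was lost without any 1 of 4 libraries, among them EB-resistant replicate 6 (-1.25, adjusted p = 0.179) and DT-resistant replicate 2 (-2.06, adjusted p = 0.14).

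Components of the RAS to ERK cascade changed in both directions. Of 27 tested, 10 rose and 9 fell, with a median log2FC of -0.01. RASGRP3, which loads RAS with GTP, was at 0.522, 0.417 and 0.305 CPM in sensitive and 6.40, 4.16 and 3.80 CPM in DT-resistant libraries (log2FC 3.52 ± 0.26, adjusted p = 3.66e-08). MAP3K8, a kinase that can activate MEK without RAF, was at 0.283, 0.238 and 0.631 and 2.15, 1.98 and 2.46 CPM (log2FC 2.52 ± 0.33, adjusted p = 1.28e-05), and the RAS relative MRAS at 7.68, 5.30 and 5.59 and 24.9, 17.01 and 15.8 CPM (log2FC 1.64 ± 0.20, adjusted p = 1.23e-05). No library of the 2 groups overlapped for these 3 genes. The scaffold KSR1 (log2FC 0.86 ± 0.18, adjusted p = 0.000672), the kinase BRAF (log2FC 0.56 ± 0.11, adjusted p = 0.000591), its relative ARAF (log2FC 0.32 ± 0.086, adjusted p = 0.00541) and the kinase MAP2K2, which is MEK2 (log2FC 0.37 ± 0.088, adjusted p = 0.00192), rose by less than 2-fold.

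The mutated oncogene NRAS was at 362, 389 and 379 CPM in sensitive and 426, 418 and 409 CPM in DT-resistant libraries, a small rise (log2FC 0.15 ± 0.058, adjusted p = 0.0379). Its adjusted p was 0.0831, 0.0775, 0.115 and 0.0614 without DT-resistant replicates 2 and 5 and sensitive replicates 2 and 6. HRAS fell (log2FC -0.83 ± 0.092, adjusted p = 2.16e-06). DAB2IP, a GTPase-activating protein that turns RAS off, was at 14.8, 14.5 and 14.6 CPM in sensitive and 0.596, 1.30 and 1.04 CPM in DT-resistant libraries (log2FC -3.91 ± 0.19, adjusted p = 6.81e-10), the deepest decline among the cascade genes tested. The GTPase-activating proteins RASA1 (log2FC -0.48 ± 0.11, adjusted p = 0.00169) and RASA2 (log2FC -0.38 ± 0.14, adjusted p = 0.0266) fell less, and the call of RASA2 was lost without DT-resistant replicates 2 or 5 or sensitive replicates 5 or 6 (adjusted p 0.113, 0.0555, 0.0939 and 0.077). NF1 was not called (log2FC 0.09 ± 0.079, adjusted p = 0.351). PEBP1, an inhibitor of RAF kinases (log2FC -0.62 ± 0.073, adjusted p = 4.18e-06), the exchange factor SOS1 (log2FC -0.64 ± 0.081, adjusted p = 8.27e-06), the phosphatase PTPN11 (log2FC -0.27 ± 0.067, adjusted p = 0.00271) and the kinase PAK1 (log2FC -0.44 ± 0.083, adjusted p = 0.000317) fell. MAPK3, which encodes an ERK kinase, fell by 0.29.

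Receptor tyrosine kinases, which feed this cascade, changed member by member. Of 33 tested, 11 rose and 13 fell. EPHA5, an ephrin receptor, was at 2.63, 2.56 and 2.46 CPM in sensitive and 47.8, 29.2 and 25.4 CPM in DT-resistant libraries (log2FC 3.74 ± 0.27, adjusted p = 1.65e-07). IGF1R, the receptor for insulin-like growth factor, rose from 39.5, 40.1 and 34.0 to 81.8, 81.2 and 61.2 CPM (log2FC 0.98 ± 0.11, adjusted p = 2.67e-06), and EPHB4, another ephrin receptor, by 0.66. PDGFRB, which binds platelet-derived growth factor, went from 0.784 ± 0.156 to 2.49 ± 0.410 CPM (log2FC 1.67 ± 0.19, adjusted p = 3.54e-06), a level below the 74.5 ± 12.0 CPM of EB-resistant cells (DT-resistant against EB-resistant log2FC -4.90 ± 0.16, adjusted p = 9.05e-12). MERTK, a receptor for PROS1 and GAS6, went from 5.46, 3.83 and 4.59 to 0.191, 0.154 and 0.0230 CPM (log2FC -5.18 ± 0.36, adjusted p = 1.82e-08), and EPHB1, an ephrin receptor, from 19.7, 17.4 and 16.5 to 1.36, 2.69 and 1.77 CPM (log2FC -3.20 ± 0.19, adjusted p = 5.26e-09). TIE1, an orphan receptor best known from endothelium (log2FC -1.99 ± 0.13, adjusted p = 2.23e-08), and MST1R, the receptor for macrophage-stimulating protein (log2FC -3.12 ± 0.28, adjusted p = 2.14e-07), fell. AXL, another receptor of GAS6, went from 2248 ± 282 to 1441 ± 90.8 CPM (log2FC -0.64 ± 0.082, adjusted p = 9.43e-06) and EGFR from 268 ± 41.6 to 147 ± 19.2 CPM (log2FC -0.87 ± 0.11, adjusted p = 7.6e-06).

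Of 34 ligands of these receptors, 15 rose and 11 fell. CSF1, the macrophage growth factor, was at 18.9, 15.5 and 16.9 CPM in sensitive and 56.6, 52.4 and 42.1 CPM in DT-resistant libraries (log2FC 1.56 ± 0.13, adjusted p = 1.61e-07). PROS1, a ligand of MERTK (log2FC 1.42 ± 0.097, adjusted p = 1.83e-08), and the ephrin EFNA5 (log2FC 0.81 ± 0.096, adjusted p = 4.27e-06) rose. FGF5 fell from 88.6, 88.4 and 88.2 to 6.23, 9.32 and 10.2 CPM (log2FC -3.36 ± 0.17, adjusted p = 1.31e-09), and the ephrins EFNB2 (log2FC -1.19 ± 0.11, adjusted p = 2.88e-07) and EFNB3 (log2FC -3.72 ± 0.34, adjusted p = 3.34e-07; -4.37 without DT-resistant replicate 2) and the neuregulin NRG2 (log2FC -2.26 ± 0.24, adjusted p = 1.47e-06) fell with it. Of 32 genes of the PI3K, AKT and mTOR pathway, 12 rose and 9 fell, with a median log2FC of 0.11.

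Genes of the interferon response were higher in the DT-resistant line. Of 50 tested, 45 rose and 1 fell, with a median log2FC of 1.44, and MX2, a GTPase, was the gene that fell (log2FC -0.28 ± 0.075, adjusted p = 0.0048). Without DT-resistant replicate 2, 43 rose and 1 fell, with a median of 1.23. Many promoters of the group hold an interferon-stimulated response element, a site bound by interferon-activated transcription factors. In RefSeq promoters (GRCh38.p14, 250 bases before to 50 bases after the gene start, 35116 promoters), the letters GAAANNGAAA on either strand occurred in 27 of 40 promoters found for the group (67.5%) and in 3.57% of all promoters. Among the 36 of these genes that rose, 24 held it. The group was drawn up from genes of the interferon response, so the share describes the listed genes and not their rise. Overlapping matches count as separate matches, a match describes the letters only, and no binding was measured. Stretches of 5 such promoters are shown because they hold the element found in 27 of the 40: ISG15 at chr1:1013359-1013424 (plus strand), IFI44L at chr1:78620259-78620409 (plus strand), IFI6 at chr1:27672251-27672373 (minus strand), IFIT1 at chr10:89392482-89392554 (plus strand) and BST2 at chr19:17405720-17405785 (minus strand). Each runs 5′ to 3′ on the strand of its gene, with matches to either strand in capitals. ISG15 encodes a ubiquitin-like protein, IFI44L and IFI6 interferon-induced proteins, IFIT1 a protein that binds foreign RNA, and BST2 tetherin, which holds budding virions at the membrane.
ISG15: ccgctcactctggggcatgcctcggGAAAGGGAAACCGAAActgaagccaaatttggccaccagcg
IFI44L: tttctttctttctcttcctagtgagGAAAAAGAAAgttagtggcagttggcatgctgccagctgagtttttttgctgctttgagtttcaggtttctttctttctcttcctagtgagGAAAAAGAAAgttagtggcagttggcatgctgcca
IFI6: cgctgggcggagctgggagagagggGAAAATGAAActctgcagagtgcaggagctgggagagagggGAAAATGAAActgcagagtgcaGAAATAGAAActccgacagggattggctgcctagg
IFIT1: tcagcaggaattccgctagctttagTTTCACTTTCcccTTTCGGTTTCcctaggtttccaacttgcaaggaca
BST2: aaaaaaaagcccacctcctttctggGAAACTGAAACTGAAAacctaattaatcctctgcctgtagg

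MX1, an antiviral GTPase, was at 4.46, 2.90 and 3.26 CPM in sensitive libraries and at 184, 69.6 and 66.3 CPM in DT-resistant libraries (log2FC 4.91 ± 0.48, adjusted p = 1.79e-05; 4.27 without replicate 2). The RNase L activators OAS2 and OAS1 were at 196, 75.7 and 73.3 CPM and 56.4, 28.1 and 26.3 CPM in DT-resistant libraries against 4.69 ± 0.870 and 1.59 ± 0.334 CPM in sensitive ones (log2FC 4.62 ± 0.46, adjusted p = 2.09e-05 and log2FC 4.53 ± 0.33, adjusted p = 5.04e-07). Their log2FC without replicate 2 were 3.997 and 4.10. IFI44L was at 2.76, 1.85 and 3.31 and 125, 38.6 and 33.4 CPM (log2FC 4.64 ± 0.56, adjusted p = 7.72e-05; 3.78 without replicate 2), and IFI6 at 15.3, 16.7 and 18.1 and 366, 88.4 and 84.5 CPM (log2FC 3.43 ± 0.55, adjusted p = 0.000591; 2.38 without it). In each of these 5 genes replicate 2 was the highest DT-resistant library, and replicates 5 and 6 were still above every sensitive library. ISG15 (log2FC 2.11 ± 0.20, adjusted p = 3.04e-06) and BST2 (log2FC 1.26 ± 0.15, adjusted p = 1.47e-05) rose by less. EPSTI1, an interferon-induced protein (log2FC 4.11 ± 0.23, adjusted p = 1.82e-08), SAMD9L, an antiviral factor (log2FC 1.37 ± 0.12, adjusted p = 1.4e-07), DDX60L, a helicase (log2FC 0.94 ± 0.079, adjusted p = 1.42e-07), and IFIT1 (log2FC 1.80 ± 0.15, adjusted p = 1.53e-07) had the smallest adjusted p-values of the group. STAT2, which carries the signal, was higher, at 35.1 ± 3.32 CPM in sensitive and 51.6 ± 5.95 CPM in DT-resistant cells (log2FC 0.56 ± 0.097, adjusted p = 0.00016).

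The receptors and sensors of this pathway did not follow as a group. Of 21 tested, 6 rose and 3 fell, with a median log2FC of 0.04. The receptor chains for interferon gamma rose, IFNGR1 from 36.1, 36.4 and 39.4 to 87.7, 74.0 and 77.2 CPM (log2FC 1.10 ± 0.092, adjusted p = 1.27e-07) and IFNGR2 from 43.4, 36.2 and 38.4 to 63.2, 65.2 and 61.5 CPM (log2FC 0.69 ± 0.091, adjusted p = 1.26e-05). TLR3, a sensor of double-stranded RNA (log2FC 1.15 ± 0.18, adjusted p = 6.66e-05), and the kinase TYK2 (log2FC 0.34 ± 0.078, adjusted p = 0.00179) rose. IFI16, a DNA sensor (log2FC -0.39 ± 0.075, adjusted p = 0.000411), IRF3, a transcription factor of the sensing pathway (log2FC -0.21 ± 0.075, adjusted p = 0.0289; adjusted p 0.112, 0.0733, 0.111 and 0.0698 without DT-resistant replicates 5 and 6 and sensitive replicates 5 and 6), and SOCS3, a feedback inhibitor of JAK kinases (log2FC -1.69 ± 0.29, adjusted p = 0.000343), fell. The interferon genes IFNB1 and IFNE were in the table but had too few counts to be tested.

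Guanylate-binding proteins, GTPases that interferon gamma induces strongly, rose in 5 of 5 cases with a median log2FC of 2.95, and in 5 with a median of 2.79 without DT-resistant replicate 2. GBP5 was at 0.0871, 0.0397 and 0.0870 CPM in sensitive and 10.1, 4.96 and 6.17 CPM in DT-resistant libraries (log2FC 6.60 ± 0.46, adjusted p = 3.49e-08; 6.26 without replicate 2), and GBP4 at 0.305, 0.298 and 0.522 and 27.1, 15.9 and 11.6 CPM (log2FC 5.60 ± 0.40, adjusted p = 1.27e-07; 5.20 without it). GBP2 (log2FC 2.95 ± 0.25, adjusted p = 2.94e-07) and GBP1 (log2FC 2.29 ± 0.23, adjusted p = 7.66e-06) rose too. The genes lie together on chromosome 1, and reads that fit more than 1 of them make single values uncertain.

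Genes of MHC class I presentation, which show peptides to cytotoxic T cells, were higher. Of 23 tested, 19 rose and 0 fell (median log2FC 1.04; 19 and 0, median 0.97, without DT-resistant replicate 2; 1 fell without replicate 6). B2M, the light chain of all class I molecules, was at 652, 599 and 599 CPM in sensitive and 2078, 1278 and 1288 CPM in DT-resistant libraries (log2FC 1.33 ± 0.15, adjusted p = 1.05e-05; 1.06 without replicate 2). HLA-B (log2FC 1.98 ± 0.27, adjusted p = 4.85e-05), HLA-C (log2FC 1.60 ± 0.20, adjusted p = 3.82e-05) and HLA-F (log2FC 3.45 ± 0.31, adjusted p = 1.06e-06) rose, with the reservation that HLA genes share sequence. The peptide-trimming aminopeptidases ERAP1 and ERAP2 rose from 85.4, 82.9 and 88.2 to 306, 261 and 237 CPM (log2FC 1.65 ± 0.085, adjusted p = 9.29e-10) and from 125, 131 and 149.8 to 287, 281 and 268 CPM (log2FC 1.04 ± 0.081, adjusted p = 6.12e-08). TAP1, a subunit of the peptide transporter (log2FC 1.55 ± 0.13, adjusted p = 1.66e-07), and PSMB9, an immunoproteasome subunit (log2FC 1.28 ± 0.10, adjusted p = 9.78e-08), rose as well. No library of the 2 groups overlapped for the genes whose 6 values are given.

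MHC class II genes, normally confined to antigen-presenting cells but inducible in melanoma, split. Of 12 tested, 3 rose and 3 fell, and 5 fell without DT-resistant replicate 2. CD74, the invariant chain, rose from 54.1, 43.8 and 46.9 to 202, 86.9 and 58.4 CPM (log2FC 1.26 ± 0.38, adjusted p = 0.0173); its log2FC was 0.60 without DT-resistant replicate 2, and the call was lost without sensitive replicate 5 or 6 (adjusted p 0.0583 and 0.0572). RFX5, a factor that binds class II promoters, rose by 0.58 and CTSS, which cuts the invariant chain, by 0.51. CIITA, the class II transactivator, was at 2.198, 2.14 and 2.698 CPM in sensitive and 0.0638, 0.286 and 0.207 CPM in DT-resistant libraries (log2FC -3.65 ± 0.38, adjusted p = 1.27e-06). The chains HLA-DRA (log2FC -1.39 ± 0.32, adjusted p = 0.0016) and HLA-DPA1 (log2FC -1.58 ± 0.46, adjusted p = 0.00951; -2.61 without DT-resistant replicate 2) fell and were under 4 CPM on average in every group.

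In direct tests the rise of these groups was larger than in the VC-resistant line. Of the 50 interferon genes 35 were higher and 1 lower in DT-resistant than in VC-resistant cells (22 higher without VC-resistant replicate 6). Of the 23 class I genes 15 were higher and 0 lower, against 8.71% and 7.08% of all genes. MX1 was at 26.7, 26.6 and 21.7 CPM in VC-resistant libraries (DT-resistant against VC-resistant log2FC 2.09 ± 0.41, adjusted p = 0.00773; 1.44 without DT-resistant replicate 2). Against EB-resistant cells, where 28.8% of all genes were higher and 28.4% lower, 28 interferon genes were higher and 3 lower. Of the class I genes 17 were higher and 1 lower there. Without DT-resistant replicate 2 the lower counts were 5 and 2. IFIT2, an antiviral protein, was the interferon gene lower than in VC-resistant cells (log2FC -0.89 ± 0.13, adjusted p = 0.000267).

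NF-kappaB is a family of transcription factors that drives inflammatory genes, cytokines among them. Of 28 genes of this group, 14 rose and 5 fell (median log2FC 0.36). SOD2, the mitochondrial superoxide dismutase, was at 108, 101 and 110.0 CPM in sensitive and 324, 347 and 410.0 CPM in DT-resistant libraries (log2FC 1.76 ± 0.14, adjusted p = 2.37e-07), and BCL3, a nuclear coactivator of NF-kappaB, at 14.2, 12.999 and 10.7 and 45.4, 33.0 and 30.8 CPM (log2FC 1.53 ± 0.17, adjusted p = 3.14e-06). REL, a subunit (log2FC 1.42 ± 0.17, adjusted p = 5.98e-06), and RIPK2, a kinase upstream (log2FC 0.91 ± 0.11, adjusted p = 5.23e-06), rose. TNFAIP2, a target gene, went from 37.0 ± 0.902 to 9.48 ± 1.55 CPM (log2FC -1.96 ± 0.24, adjusted p = 2.9e-05). The kinase IKBKB (log2FC -0.78 ± 0.13, adjusted p = 0.000125), the nuclear regulator NFKBIZ (log2FC -0.82 ± 0.21, adjusted p = 0.00507) and the surface protein CD83 (log2FC -0.69 ± 0.20, adjusted p = 0.00988) fell. The adjusted p of CD83 was 0.0519 without sensitive replicate 6.

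Among 28 tested cytokine and chemokine genes, 15 rose and 2 fell, with a median log2FC of 1.23. Without DT-resistant replicate 6, 4 fell. A fit of the 6 libraries alone gave 13 and 4, with a median of 0.8. Without DT-resistant replicate 2 the median was 0.85. IL6 was at 85.2, 45.6 and 45.2 CPM in sensitive libraries and at 630.2, 837 and 1183 CPM in DT-resistant libraries (log2FC 3.91 ± 0.34, adjusted p = 8.26e-06), and IL32, an inflammatory cytokine, at 3.85, 3.41 and 3.31 and 150.2, 110.3 and 104 CPM (log2FC 5.11 ± 0.20, adjusted p = 1.17e-09). CCL5, which attracts T cells, was at 1.96, 1.75 and 2.63 and 85.8, 41.2 and 41.8 CPM (log2FC 4.74 ± 0.34, adjusted p = 7.85e-07), and CCL20, which attracts dendritic cells, at 2.39, 1.85 and 2.00 and 24.6, 60.5 and 80.9 CPM (log2FC 4.73 ± 0.54, adjusted p = 5.45e-05). For these 4 genes all DT-resistant libraries were above all sensitive ones. IL15 (log2FC 2.42 ± 0.22, adjusted p = 3.45e-07) and IL34 (log2FC 6.15 ± 0.61, adjusted p = 7.62e-07; 7.02 without sensitive replicate 2) rose from under 1 CPM on average. IL1B, in contrast, was at 829, 812 and 595 CPM in sensitive and 38.1, 119.5 and 169 CPM in DT-resistant libraries (log2FC -2.78 ± 0.54, adjusted p = 0.00184), and TNFSF15 fell (log2FC -1.34 ± 0.30, adjusted p = 0.00147). CXCL8 was at 735, 808 and 515 and 149.7, 768 and 1496 CPM; its DT-resistant libraries ran from below to above the sensitive ones and it was not called (log2FC 0.23 ± 0.96, adjusted p = 0.854). IL6 was at 188, 224 and 191 CPM in VC-resistant and 77.8, 49.0 and 65.7 CPM in EB-resistant libraries (DT-resistant against these log2FC 2.14 ± 0.31, adjusted p = 0.00171 and log2FC 3.78 ± 0.34, adjusted p = 1.06e-05).

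Of 27 genes of immune checkpoints and costimulation, which include ligands, enzymes and a death receptor, 11 rose and 7 fell. CD70, a ligand of the receptor CD27 (log2FC 1.85 ± 0.15, adjusted p = 1.26e-07), NCR3LG1, a ligand of an activating receptor of natural killer cells (log2FC 0.85 ± 0.077, adjusted p = 2.91e-07), CD276 (log2FC 1.23 ± 0.16, adjusted p = 1.59e-05) and IDO1, a tryptophan-degrading enzyme (log2FC 3.65 ± 0.40, adjusted p = 1.98e-06), rose. CD274, which encodes PD-L1, was at 149.8, 132 and 102 CPM in sensitive and 298, 279 and 249 CPM in DT-resistant libraries (log2FC 1.10 ± 0.20, adjusted p = 0.000761). NT5E, the adenosine-producing enzyme CD73, went from 1743, 1443 and 1344 to 386, 490.3 and 533 CPM (log2FC -1.68 ± 0.17, adjusted p = 4.33e-06), and NECTIN1 (log2FC -2.47 ± 0.25, adjusted p = 1.19e-06) and the death receptor FAS (log2FC -2.18 ± 0.30, adjusted p = 1.82e-05) fell.

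Genes of protein folding in the endoplasmic reticulum rose. Chaperones of this compartment are induced when unfolded proteins build up, through ATF6, XBP1 and PERK. Of 32 genes tested, 26 rose and 2 fell, with a median log2FC of 0.94; without DT-resistant replicate 2, 27 rose and 2 fell, with a median of 0.82. The endoplasmic reticulum stress element, in the letters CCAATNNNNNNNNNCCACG on either strand, occurred in 6 of 28 RefSeq promoters found for the group (21.4%) and in 0.0769% of all. This share again describes the listed genes and not their rise. All 6 promoters with the element belonged to genes that rose, and 23 of the 28 genes rose. They are printed because the promoters that hold the element are few, with the matches in capitals. HSPA5 encodes the chaperone BiP, HSP90B1 the chaperone GRP94, CALR and CANX the lectin chaperones calreticulin and calnexin, XBP1 the factor itself and CRELD2 a secreted stress protein.
HSPA5: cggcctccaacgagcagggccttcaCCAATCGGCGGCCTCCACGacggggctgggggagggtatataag
CALR: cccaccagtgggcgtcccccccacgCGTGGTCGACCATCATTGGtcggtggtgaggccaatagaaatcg
XBP1: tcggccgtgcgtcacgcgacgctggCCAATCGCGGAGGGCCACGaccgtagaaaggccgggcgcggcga
HSP90B1: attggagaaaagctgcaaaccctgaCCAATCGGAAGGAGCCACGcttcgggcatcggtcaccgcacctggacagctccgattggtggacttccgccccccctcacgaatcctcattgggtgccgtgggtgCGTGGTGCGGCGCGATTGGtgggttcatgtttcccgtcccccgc
CANX: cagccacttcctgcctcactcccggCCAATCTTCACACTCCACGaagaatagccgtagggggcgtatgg
CRELD2: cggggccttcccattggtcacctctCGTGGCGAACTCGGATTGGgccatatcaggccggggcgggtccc

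HSPA5 was at 1719, 1544 and 1379.9 CPM in sensitive libraries and 9364, 5709 and 5986 CPM in DT-resistant libraries (log2FC 2.18 ± 0.19, adjusted p = 1.89e-06; 1.93 without replicate 2). CALR was at 689, 763 and 835 and 2025, 1352 and 1456 CPM (log2FC 1.08 ± 0.13, adjusted p = 6.5e-06), and CANX at 1566, 1560.3 and 1621 and 3583, 3080.4 and 3068 CPM (log2FC 1.04 ± 0.073, adjusted p = 2.27e-08). HERPUD1, a part of the degradation machinery of this compartment, was at 103, 86.0 and 77.2 and 467, 334 and 290.3 CPM (log2FC 2.03 ± 0.18, adjusted p = 2.17e-06; 1.82 without replicate 2). All DT-resistant libraries were above all sensitive ones for these 4 genes. The other 3 genes with the element rose less, HSP90B1 by 0.64, XBP1 by 0.56 and CRELD2 by 0.62. HYOU1, a large chaperone (log2FC 1.22 ± 0.11, adjusted p = 2.53e-07), PDIA4, a disulfide isomerase (log2FC 1.27 ± 0.11, adjusted p = 2.94e-07), and EIF2AK3, which is PERK (log2FC 1.25 ± 0.093, adjusted p = 3.83e-08), had the smallest adjusted p-values after CANX. PDIA6, another disulfide isomerase, and DERL2, a factor of protein degradation there, fell by 0.33 and 0.34. Against VC-resistant cells 14 of the 32 were higher (8.71% of all genes) and 0 lower (7.08% of all genes). HSPA5 was at 4551, 3459 and 3261 CPM there (DT-resistant against VC-resistant log2FC 0.90 ± 0.18, adjusted p = 0.00599).

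**Figure D2:**
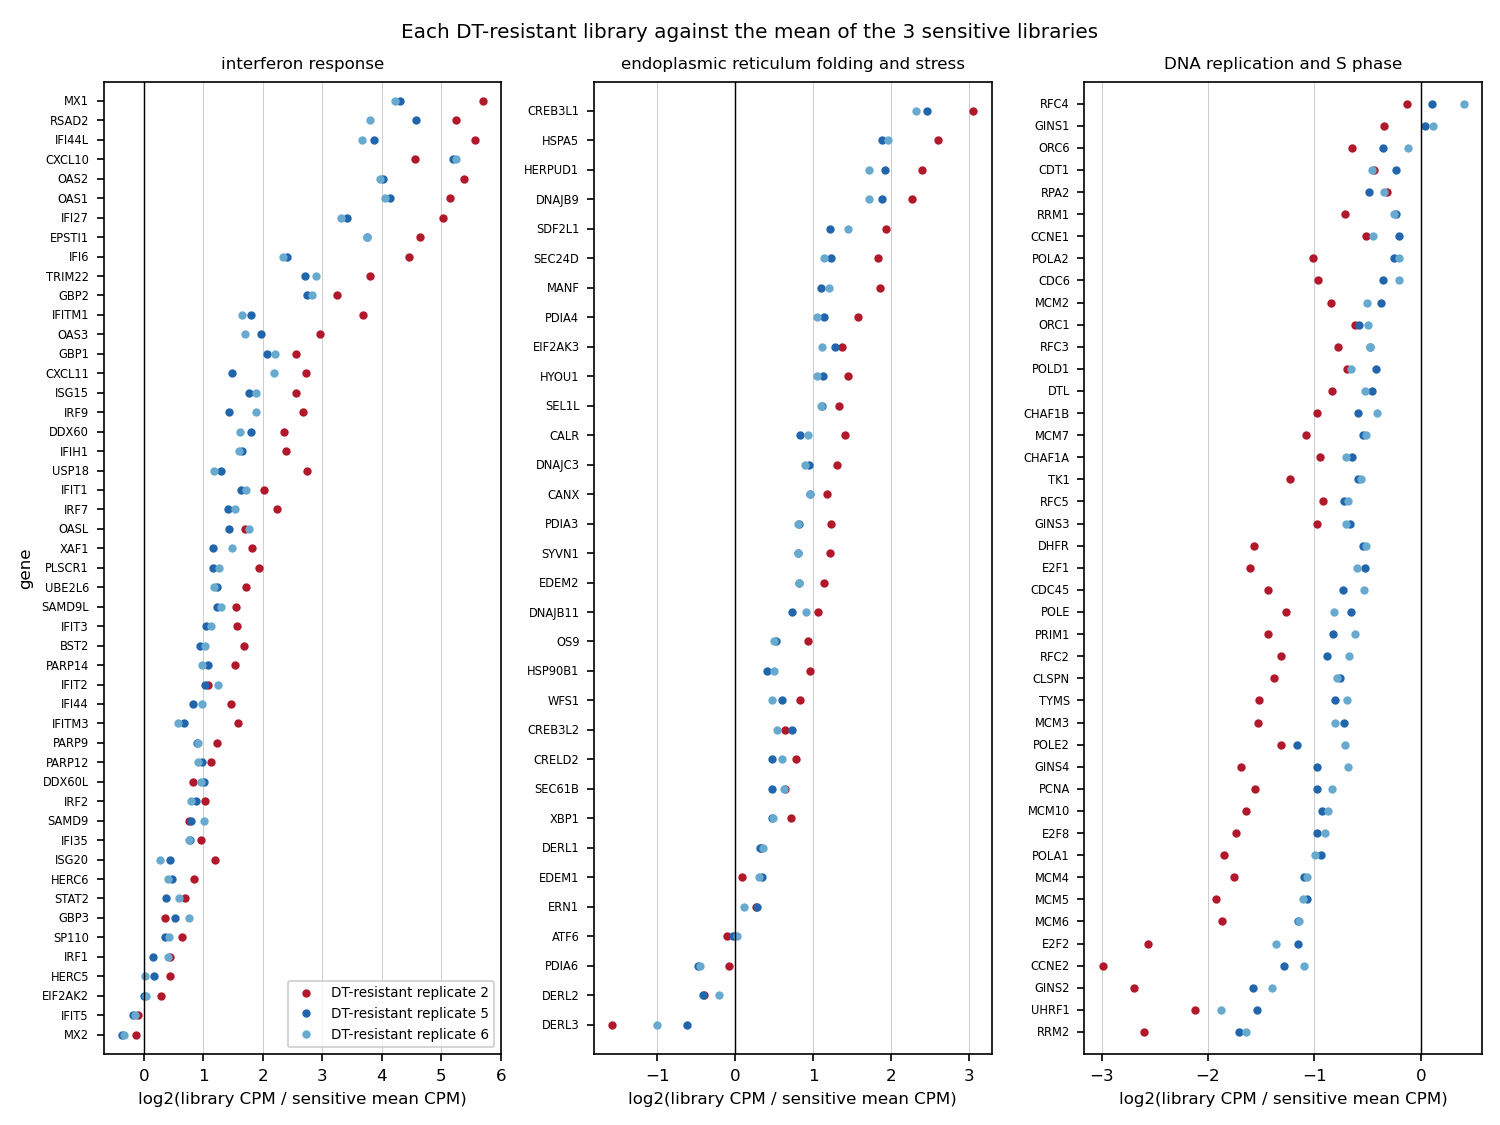
Log2 of the CPM of each DT-resistant library over the mean CPM of the sensitive libraries, for tested genes of the interferon response, of endoplasmic reticulum folding and stress, and of DNA replication; each point is 1 gene in 1 library, coloured by replicate. Replicate 2 lies to the right of the other two in most rows of the first and second group and to the left in the third, where 41 of 43 genes are lowest in it.

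DNA replication genes were lower in the DT-resistant line. Of 43 tested, 0 rose and 37 fell, with a median log2FC of -0.83. Replicate 2 was the lowest DT-resistant library for 41 of them and the lowest sensitive library for all 43. Without DT-resistant replicate 2, 1 rose, 34 fell and the median was -0.67; without sensitive replicate 2, 0 rose, 40 fell and the median was -0.95. With the replicate number as a block 41 fell, with a median of -0.87. Against VC-resistant cells 0 of the 43 were higher and 2 lower (8.71% and 7.08% of all genes). Against EB-resistant cells 1 was higher and 16 lower (28.8% and 28.4% of all genes). RRM2, a subunit of ribonucleotide reductase, was at 267, 373 and 423 CPM in sensitive and 58.6, 108 and 113 CPM in DT-resistant libraries (log2FC -1.92 ± 0.25, adjusted p = 8.14e-05). UHRF1, which maintains DNA methylation at the fork, was at 65.0, 95.5 and 114 and 20.9, 31.3 and 24.8 CPM (log2FC -1.83 ± 0.23, adjusted p = 4.11e-05). Neither gene had overlapping groups. RFC5, a clamp loader subunit (log2FC -0.77 ± 0.11, adjusted p = 2.32e-05), POLD1, a polymerase (log2FC -0.58 ± 0.091, adjusted p = 6.13e-05), and the helicase subunit MCM6 (log2FC -1.35 ± 0.20, adjusted p = 0.000137) fell. RFC4 was the gene of the group with the highest log2FC, 0.15 ± 0.12, and was called only without DT-resistant replicate 2 (0.27, adjusted p = 0.0474).

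Mitotic genes changed less. Of 38 tested, 3 rose and 20 fell, with a median of -0.23. Without DT-resistant replicate 2, 5 rose and 14 fell, with a median of -0.14. Without sensitive replicate 2, 2 rose and 22 fell, with a median of -0.25. Against VC-resistant cells 0 were higher and 3 lower (8.71% and 7.08% of all genes). Against EB-resistant cells 14 were higher and 6 lower (28.8% and 28.4% of all genes). The kinesin KIF11 (log2FC -0.85 ± 0.10, adjusted p = 4.29e-06), the survivin gene BIRC5 (log2FC -0.64 ± 0.089, adjusted p = 2e-05), the separase gene ESPL1 (log2FC -0.86 ± 0.12, adjusted p = 2.66e-05) and TPX2, a spindle factor (log2FC -0.62 ± 0.096, adjusted p = 5.69e-05), fell. PTTG1, the securin that restrains separase (log2FC 0.42 ± 0.066, adjusted p = 6.28e-05), CDC25B, a phosphatase of mitotic entry (log2FC 0.25 ± 0.077, adjusted p = 0.0105), and KIF20A, a kinesin of cytokinesis (log2FC 0.30 ± 0.10, adjusted p = 0.0207), rose. The call of KIF20A was lost without DT-resistant replicates 5 or 6 or sensitive replicate 2 (adjusted p 0.0833, 0.0945 and 0.0996). MKI67, the proliferation marker, was at 372, 402 and 479.5 CPM in sensitive and 267, 346 and 339.6 CPM in DT-resistant libraries (log2FC -0.39 ± 0.11, adjusted p = 0.00588; -0.28 without replicate 2).

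Regulators of the G1 phase shifted in both directions, 6 up and 10 down of 21. CDKN1B, the p27 inhibitor of cyclin-dependent kinases, rose from 39.3, 38.9 and 36.1 to 127, 86.6 and 83.3 CPM (log2FC 1.38 ± 0.16, adjusted p = 9.81e-06). RBL2, a relative of the retinoblastoma protein found in resting cells (log2FC 1.01 ± 0.13, adjusted p = 9.4e-06), E2F5, a repressive E2F factor (log2FC 0.87 ± 0.097, adjusted p = 2.29e-06), and the kinase CDK6 (log2FC 0.65 ± 0.075, adjusted p = 3.12e-06) rose. RBL1, the relative found in cycling cells (log2FC -1.38 ± 0.15, adjusted p = 2.8e-06), and CDK4 (log2FC -0.49 ± 0.081, adjusted p = 0.000115) fell. CDKN1A, the p21 inhibitor, was at 86.9, 69.0 and 68.7 CPM in sensitive and 2.40, 3.86 and 5.55 CPM in DT-resistant libraries (log2FC -4.25 ± 0.41, adjusted p = 1.48e-05). Of 29 p53 targets, 6 rose and 8 fell. EDA2R, a death receptor (log2FC -2.05 ± 0.22, adjusted p = 1.74e-06), and TP53I3, an oxidoreductase (log2FC -2.49 ± 0.28, adjusted p = 3.33e-06), fell alongside CDKN1A. ZMAT3, an RNA-binding protein (log2FC 0.80 ± 0.089, adjusted p = 2.27e-06), DDB2, a DNA repair factor (log2FC 0.70 ± 0.087, adjusted p = 6.5e-06), and CCNG1, an atypical cyclin (log2FC 0.67 ± 0.12, adjusted p = 0.000372), rose.

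Of 19 genes of the BCL2 family, which set the threshold for apoptosis, 4 rose and 11 fell. The survival gene BCL2L1, which encodes BCL-XL, was at 321, 338 and 314 CPM in sensitive and 114, 136 and 129 CPM in DT-resistant libraries (log2FC -1.36 ± 0.074, adjusted p = 1.55e-09), and MCL1, another survival gene, at 621, 559 and 482 and 256, 276 and 237 CPM (log2FC -1.11 ± 0.095, adjusted p = 1.57e-07). For both genes the groups did not overlap. The death-promoting HRK and BMF rose, HRK from 0.731 ± 0.131 to 3.76 ± 0.772 CPM (log2FC 2.36 ± 0.25, adjusted p = 1.51e-06) and BMF from 1.80 ± 0.289 to 7.07 ± 2.58 CPM (log2FC 1.97 ± 0.28, adjusted p = 4.51e-05), as did BAK1, an effector of pore formation, by 0.29. The call of BAK1 was lost without DT-resistant replicates 2 or 5 or sensitive replicates 2 or 5 (adjusted p 0.172, 0.0503, 0.184 and 0.0707). BOK and BNIP3, further relatives, fell by 0.57 and 0.74.

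Markers of melanocytic identity gave no single direction. Of 13 melanocyte genes tested, 5 rose and 4 fell. MITF, the lineage transcription factor, was at 40.7, 49.1 and 51.7 CPM in sensitive and 64.8, 70.1 and 64.0 CPM in DT-resistant libraries, which did not overlap (log2FC 0.49 ± 0.094, adjusted p = 0.000352). GPNMB, a melanosomal glycoprotein, went from 23.7, 19.5 and 21.9 to 197, 144 and 164 CPM (log2FC 2.95 ± 0.12, adjusted p = 7.56e-11), while MLPH, which links melanosomes to myosin, went from 40.0, 40.6 and 42.8 to 5.74, 6.83 and 5.48 CPM (log2FC -2.77 ± 0.11, adjusted p = 7.27e-11). GPR143, a melanosomal receptor, and ST3GAL6, a sialyltransferase, rose by 0.40 and 0.57. BCL2A1, a survival gene under MITF (log2FC -1.89 ± 0.25, adjusted p = 2.54e-05), and CDK2 (log2FC -0.40 ± 0.076, adjusted p = 0.000363) fell. Pigment genes that define differentiated melanocytes were at or near 0 in the parent too: PMEL was at 0.755 ± 0.157 and 0.453 ± 0.178 CPM in sensitive and DT-resistant cells, TYRP1 was under 1 CPM in all 12 libraries, and its call as higher (log2FC 2.14 ± 0.78, adjusted p = 0.0275) was lost without DT-resistant replicate 6 or sensitive replicates 2 or 5 (adjusted p 0.149, 0.0721 and 0.0853), and DCT, TRPM1 and CAPN3 had too few counts to be tested.

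Of 19 neural crest genes, 4 rose and 8 fell. SOX9 was at 75.9, 90.2 and 94.5 CPM in sensitive and 20.3, 14.8 and 13.1 CPM in DT-resistant libraries (log2FC -2.43 ± 0.18, adjusted p = 1.58e-07), and NES, the intermediate filament of neural stem cells, at 5.03, 4.17 and 4.31 and 0.0638, 0 and 0 CPM (log2FC -7.51 ± 0.60, adjusted p = 9.54e-08; -10.71 without DT-resistant replicate 2). NGFR, the marker most used for the neural crest-like state, was at 1.85 ± 0.210 and 0.188 ± 0.133 CPM (log2FC -3.26 ± 0.39, adjusted p = 4.43e-06; -4.002 without DT-resistant replicate 2). MSX1 fell (log2FC -1.40 ± 0.13, adjusted p = 3.75e-07). TFAP2A, a crest and melanocyte factor, rose from 43.0, 38.3 and 39.5 to 145, 100.4 and 94.8 CPM (log2FC 1.49 ± 0.20, adjusted p = 6.46e-05), with SOX5 (log2FC 1.38 ± 0.27, adjusted p = 0.000385), TWIST1 (log2FC 0.52 ± 0.13, adjusted p = 0.0024) and SNAI2 (log2FC 1.79 ± 0.56, adjusted p = 0.0211). SNAI2 lost its call without DT-resistant replicate 2 or sensitive replicates 2 or 5 (adjusted p 0.106, 0.0744 and 0.0737). Of 24 genes of the dedifferentiated or invasive state, 8 rose and 10 fell. WNT5A, a ligand of noncanonical WNT signalling, was at 88.6, 92.4 and 93.3 CPM in sensitive and 302, 246 and 238 CPM in DT-resistant libraries (log2FC 1.52 ± 0.15, adjusted p = 2.92e-06), and LOXL2, a collagen crosslinker, at 301, 293 and 287 and 791, 645 and 582 CPM (log2FC 1.20 ± 0.12, adjusted p = 7.65e-07). AXL, EGFR, FOSL1 and NT5E, markers of the same state, fell, as given above. VIM, the mesenchymal intermediate filament, fell from 6280.0, 6481 and 5804 to 3678, 3649 and 3457 CPM (log2FC -0.78 ± 0.072, adjusted p = 3.53e-07), and the cadherins CDH2 and CDH13 rose by 0.32 and 0.65.

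Markers of other cell types were tested in the same way. Of 12 keratins tested, 8 rose and 3 fell, with a median log2FC of 2.11. KRT17, a keratin of stressed epithelium, was at 0.0871, 0.0595 and 0.131 CPM in sensitive and 161, 61.0 and 64.9 CPM in DT-resistant libraries (log2FC 9.99 ± 0.85, adjusted p = 7.94e-06; 9.39 without replicate 2). KRT7, a simple epithelial keratin, was at 5.16, 5.22 and 5.29 and 41.8, 41.8 and 46.8 CPM (log2FC 3.06 ± 0.24, adjusted p = 3.85e-07), and KRT80 at 172, 199.8 and 223 and 730.1, 549.7 and 544 CPM (log2FC 1.62 ± 0.12, adjusted p = 6.74e-08). The paired simple keratins KRT18 and KRT8 fell, KRT18 from 243, 305 and 326 to 43.8, 54.5 and 54.1 CPM (log2FC -2.52 ± 0.12, adjusted p = 6.59e-10) and KRT8 by 0.68. Keratins share sequence, so single values are uncertain. Other defining epithelial genes were absent or low: CDH1, CLDN7, DSP and SFN had too few counts to be tested, and TP63 was at 0.169 ± 0.0444 and 0.112 ± 0.0487 CPM. Over all 9 epithelial markers tested, 3 rose and 2 fell.

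Of 18 smooth muscle genes, 12 rose and 3 fell, with a median of 0.57. Against VC-resistant cells 4 were higher and 3 lower, with a median of 0.03. MYOCD, the coactivator that drives the smooth muscle programme, was at 0.196, 0.278 and 0.370 CPM in sensitive and 5.87, 7.29 and 7.85 CPM in DT-resistant libraries (log2FC 4.63 ± 0.34, adjusted p = 3.51e-08), and TAGLN, an actin-binding protein, at 0.435, 0.476 and 0.261 and 24.4, 21.7 and 23.1 CPM (log2FC 5.86 ± 0.22, adjusted p = 3.51e-11). LPP (log2FC 1.10 ± 0.096, adjusted p = 1.9e-07) and the light chain MYL9 (log2FC 1.32 ± 0.14, adjusted p = 1.27e-06) rose, while SMTN (log2FC -2.36 ± 0.11, adjusted p = 3.32e-10), CSRP1 (log2FC -0.55 ± 0.067, adjusted p = 5.01e-06) and ACTA2, the smooth muscle actin (log2FC -2.54 ± 0.36, adjusted p = 2.19e-05), fell. ACTA2 was at 1.13 ± 0.161 and 0.192 ± 0.0523 CPM, and MYH11, the defining heavy chain, had too few counts to be tested.

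Of 7 fibroblast markers, 5 rose and 1 fell. LUM, a small proteoglycan, was at 0.588, 0.834 and 1.33 CPM in sensitive and 207, 104 and 124 CPM in DT-resistant libraries (log2FC 7.30 ± 0.61, adjusted p = 7.52e-06; 6.96 without replicate 2), and THY1, a surface glycoprotein, at 107, 128 and 146 and 250.4, 251 and 244 CPM (log2FC 0.97 ± 0.094, adjusted p = 6.23e-07). The fibroblast-defining genes DCN, COL1A2 and PDGFRA had too few counts to be tested. Of 8 endothelial markers 1 rose (2 without DT-resistant replicate 6) and 3 fell, of 7 neuronal markers 3 and 4, and of 5 skeletal muscle markers 0 and 1 (1 and 2 without DT-resistant replicate 5, 0 and 2 without sensitive replicate 2). VWF, an endothelial and platelet glycoprotein (log2FC 2.61 ± 0.26, adjusted p = 7.18e-07), and NCAM1, a neural adhesion molecule (log2FC 2.40 ± 0.43, adjusted p = 0.000946), rose, and ROBO4 (log2FC -1.79 ± 0.11, adjusted p = 7.9e-09), PECAM1 (log2FC -3.63 ± 0.71, adjusted p = 0.000435; -4.30 without DT-resistant replicate 5) and the synaptic gene SYT1 (log2FC -4.29 ± 0.57, adjusted p = 3.52e-05; -5.75 without replicate 6) fell. Of 4 leukocyte markers tested 2 rose and 1 fell, and 0 or 1 rose without any single library. Summed over the 9 leukocyte markers in the table, tested or not, libraries held 1.13 to 1.63 CPM in sensitive and 0.461 to 0.992 CPM in DT-resistant cells.

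**Figure D3:**
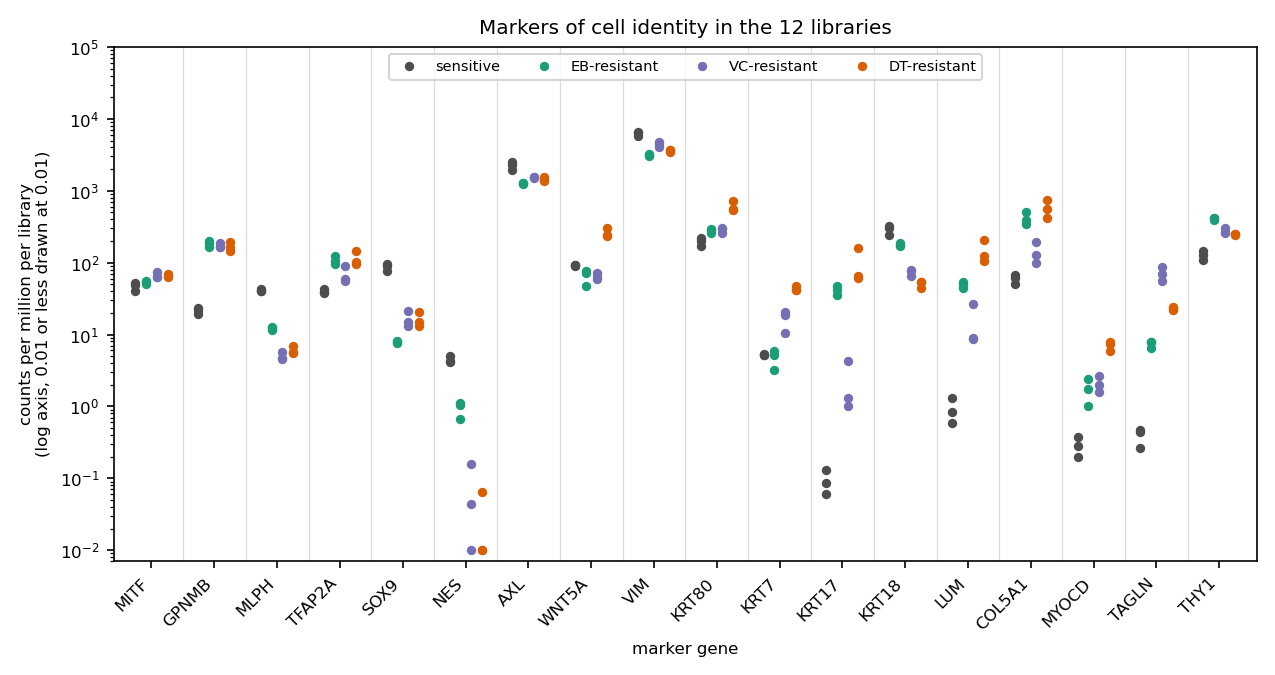
Level of 18 identity genes in each of the 12 libraries, in CPM on a log axis with values of 0.01 or less drawn at 0.01, coloured by group; CPM are not comparable between genes. KRT17, LUM and TAGLN are below 2 CPM in every sensitive library and at least 10 times higher in every DT-resistant library, while NES and MLPH lie below the sensitive libraries.

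Of 24 collagen chains tested, 14 rose and 4 fell, with a median log2FC of 0.84 (0.80 with genes that are at 0 in a group set at their bound). COL5A1, a fibril chain, was at 50.3, 60.9 and 68.2 CPM in sensitive and 738, 551 and 419 CPM in DT-resistant libraries (log2FC 3.25 ± 0.31, adjusted p = 1.36e-05). COL15A1, of the basement membrane zone, was at 1.52, 1.89 and 2.68 and 31.9, 40.9 and 42.3 CPM (log2FC 4.24 ± 0.23, adjusted p = 6.06e-09). COL4A5 (log2FC 1.28 ± 0.15, adjusted p = 5.47e-06) and COL3A1 (log2FC 4.10 ± 0.52, adjusted p = 8.8e-06; 5.07 without sensitive replicate 2) rose, and COL3A1 stayed under 2 CPM on average. COL13A1, a transmembrane collagen, fell from 124, 107 and 103 to 18.02, 19.5 and 20.8 CPM (log2FC -2.52 ± 0.097, adjusted p = 3.51e-11), with COL17A1 (log2FC -2.61 ± 0.25, adjusted p = 4.94e-07), COL6A1 (log2FC -1.06 ± 0.20, adjusted p = 0.000603) and COL4A6 (log2FC -1.72 ± 0.42, adjusted p = 0.00306). Of the 24 chains 11 were higher (8.71% of all genes) and 2 lower (7.08% of all genes) than in VC-resistant cells.

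Among 34 matrix glycoproteins and proteoglycans, 14 rose and 13 fell. FBN1, the main microfibril protein, was at 60.1, 58.7 and 59.4 CPM in sensitive and 377, 417 and 406 CPM in DT-resistant libraries (log2FC 2.75 ± 0.083, adjusted p = 2.44e-12), HSPG2, which encodes perlecan, at 129, 110.1 and 83.7 and 453, 454 and 342 CPM (log2FC 1.95 ± 0.17, adjusted p = 1.4e-06), and LAMA1, a laminin chain, at 2.33, 1.55 and 1.52 and 10.8, 12.9 and 10.1 CPM (log2FC 2.65 ± 0.26, adjusted p = 1.05e-06). EMILIN1, an elastic fibre protein, was at 97.7, 91.1 and 87.6 and 0.191, 0.264 and 0.345 CPM (log2FC -8.43 ± 0.33, adjusted p = 1.79e-09). LAMA5 and LAMB3, laminin chains of epithelial basement membranes, went from 109, 71.6 and 52.0 to 0.298, 0.507 and 0.438 CPM (log2FC -7.55 ± 0.62, adjusted p = 5.48e-06) and from 153, 139 and 105 to 22.0, 17.7 and 15.0 CPM (log2FC -2.85 ± 0.21, adjusted p = 3.98e-07). Groups did not overlap for any of these 6 genes. ECM1 (log2FC -2.29 ± 0.15, adjusted p = 2.61e-08) and MFAP2 (log2FC -1.42 ± 0.13, adjusted p = 3.53e-07) fell.

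Of 30 matrix proteases and their inhibitors, 10 rose and 11 fell. PLAU, the urokinase, went from 1113, 1039.8 and 1115 to 341, 407 and 443 CPM (log2FC -1.46 ± 0.11, adjusted p = 9.35e-08), and its receptor PLAUR (log2FC -1.17 ± 0.12, adjusted p = 1.16e-06) fell too. MMP1, the interstitial collagenase, was at 2255, 2099.9 and 2540.0 CPM in sensitive and 29.3, 60.7 and 99.7 CPM in DT-resistant libraries (log2FC -5.18 ± 0.55, adjusted p = 3.95e-05), and TIMP3, an inhibitor of metalloproteases, at 112, 61.1 and 52.1 and 0.915, 0.683 and 0.299 CPM (log2FC -6.87 ± 0.45, adjusted p = 7.82e-07). MMP2, a gelatinase, rose from 49.3, 43.5 and 42.7 to 299.5, 203 and 155 CPM (log2FC 2.28 ± 0.35, adjusted p = 0.000387). ADAMTS12 (log2FC 1.02 ± 0.093, adjusted p = 3.02e-07), ADAM19 (log2FC 1.16 ± 0.12, adjusted p = 1.4e-06) and ADAM12 (log2FC 0.59 ± 0.085, adjusted p = 2.83e-05) rose.

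Integrins, the receptors for these matrices, split as 6 up and 8 down of 19. ITGB3, the beta chain of vitronectin receptors, was at 4.29, 3.02 and 2.61 CPM in sensitive and 31.7, 20.4 and 23.5 CPM in DT-resistant libraries (log2FC 2.93 ± 0.26, adjusted p = 1.4e-06), and its partner ITGAV rose by 0.70. ITGA6 and ITGB4, which pair as a laminin receptor, fell from 459.8, 409.9 and 353 to 143, 183 and 159.7 CPM (log2FC -1.33 ± 0.099, adjusted p = 3.89e-08) and from 18.5, 16.5 and 14.2 to 3.21, 3.59 and 3.13 CPM (log2FC -2.31 ± 0.17, adjusted p = 3.99e-08). ITGA2, a chain of collagen receptors, went from 238 ± 23.6 to 68.1 ± 8.89 CPM (log2FC -1.81 ± 0.19, adjusted p = 9.43e-06).

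Of 43 genes of the TGF-beta and BMP pathway, which acts through paired type 1 and type 2 receptors, 14 rose and 14 fell. The ligand TGFB2 was at 63.9, 58.2 and 55.7 CPM in sensitive and 1193, 829 and 785 CPM in DT-resistant libraries (log2FC 3.98 ± 0.23, adjusted p = 1.35e-07). TGFBR1, the signalling receptor, was at 154, 149.6 and 149.6 and 2487, 2221 and 2073 CPM (log2FC 3.90 ± 0.098, adjusted p = 2.83e-13). TGFBR2, the receptor that binds ligand, went from 163, 191 and 186 to 74.4, 91.8 and 82.7 CPM (log2FC -1.12 ± 0.084, adjusted p = 4.23e-08), and the coreceptor ENG from 87.8, 97.3 and 92.3 to 16.8, 20.6 and 16.3 CPM (log2FC -2.37 ± 0.095, adjusted p = 6.08e-11). GDF6, a BMP ligand (log2FC 5.75 ± 0.28, adjusted p = 4.74e-10), and BMP1, a protease that matures collagens and ligands (log2FC 1.99 ± 0.16, adjusted p = 8.97e-08), rose. LTBP2, a latent TGF-beta binding protein relative (log2FC -3.17 ± 0.21, adjusted p = 1.25e-08), and GDF11 (log2FC -1.78 ± 0.13, adjusted p = 4.39e-08) fell. TGFBR1 and TGFB2 were also above VC-resistant cells, in which they were at 1086, 948 and 888 CPM and 680.0, 433 and 395 CPM (DT-resistant against VC-resistant log2FC 1.21 ± 0.088, adjusted p = 3.95e-07 and log2FC 0.90 ± 0.20, adjusted p = 0.0131). The call of TGFB2 there was lost without DT-resistant replicate 2 or VC-resistant replicate 5 (adjusted p 0.0542 and 0.0611).

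In the WNT pathway, 14 of 38 genes rose and 14 fell. SFRP1, a secreted WNT antagonist, was at 333, 405 and 384 CPM in sensitive and 3.04, 2.42 and 2.69 CPM in DT-resistant libraries (log2FC -7.10 ± 0.41, adjusted p = 5.64e-07). The receptor FZD8 (log2FC -2.48 ± 0.18, adjusted p = 2.8e-08), the transcription factor LEF1 (log2FC -1.65 ± 0.17, adjusted p = 1.38e-06) and the ligand WNT5B (log2FC -1.26 ± 0.15, adjusted p = 1.31e-05) fell. RNF43, which removes WNT receptors from the surface, rose from 3.79, 3.37 and 3.52 to 18.9, 16.6 and 16.8 CPM (log2FC 2.29 ± 0.18, adjusted p = 6.61e-08), with the coreceptors LRP5 (log2FC 2.88 ± 0.25, adjusted p = 4.22e-07) and LRP6 (log2FC 0.78 ± 0.079, adjusted p = 9.08e-07). Of 19 Notch pathway genes, 10 rose and 4 fell. The target HES4 was at 2.26, 1.51 and 1.94 CPM in sensitive and 26.5, 12.7 and 15.8 CPM in DT-resistant libraries (log2FC 3.27 ± 0.29, adjusted p = 8.46e-07), the ligand JAG1 at 12.2, 10.96 and 10.7 and 92.0, 43.8 and 34.0 CPM (log2FC 2.33 ± 0.39, adjusted p = 0.000684), and the receptor NOTCH2 rose by 0.60 while NOTCH1 fell by 0.95.

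Of 28 glycolysis genes, 4 rose and 14 fell. SLC16A3, the lactate exporter of glycolytic cells, fell from 119, 111 and 105 to 37.6, 46.4 and 41.7 CPM (log2FC -1.41 ± 0.11, adjusted p = 4.1e-08), and PGAM1 (log2FC -0.94 ± 0.12, adjusted p = 9.5e-06) and PKM, the pyruvate kinase (log2FC -0.53 ± 0.088, adjusted p = 0.000104), fell too. ENO2, an enolase (log2FC 0.45 ± 0.084, adjusted p = 0.000292), rose. Of 35 fatty acid genes, 7 rose and 18 fell. CD36, a fatty acid receptor, was at 0.109, 0.0794 and 0.174 CPM in sensitive and 5.87, 6.57 and 7.83 CPM in DT-resistant libraries (log2FC 5.79 ± 0.24, adjusted p = 9.81e-11), and LPL, a lipase, rose from 0.196 ± 0.0221 to 2.80 ± 0.752 CPM (log2FC 3.81 ± 0.39, adjusted p = 9.21e-07). PPARGC1A, a coactivator of mitochondrial genes, rose from 4.79, 3.67 and 4.39 to 15.3, 10.6 and 10.1 CPM (log2FC 1.49 ± 0.18, adjusted p = 4.06e-06). SCD, the stearoyl-CoA desaturase, went from 730.3, 774 and 757 to 333, 175 and 132 CPM (log2FC -1.82 ± 0.49, adjusted p = 0.0106) and FASN, the fatty acid synthase, from 438, 529 and 456 to 261, 244 and 195 CPM (log2FC -1.02 ± 0.12, adjusted p = 7.83e-06). FABP5 (log2FC -1.77 ± 0.13, adjusted p = 4.59e-08) and DGAT2 (log2FC -2.41 ± 0.23, adjusted p = 4.26e-07) fell.

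Of 76 oxidative phosphorylation genes encoded in the nucleus, 30 rose and 13 fell, and of 13 mRNAs encoded in mitochondria 0 rose and 4 fell (7 without sensitive replicate 6). Of 41 lysosome and autophagy genes, 23 rose and 9 fell. LAMP2, a lysosomal membrane protein, was at 281, 228 and 230.0 CPM in sensitive and 797, 683 and 675 CPM in DT-resistant libraries (log2FC 1.54 ± 0.094, adjusted p = 5.29e-09), and the proton pump subunit ATP6V1A at 98.8, 109 and 117 and 257, 243 and 234 CPM (log2FC 1.18 ± 0.07, adjusted p = 4.45e-09). HEXA, a hexosaminidase chain, rose by 0.66, and the cathepsins CTSH (log2FC -5.16 ± 0.34, adjusted p = 1.35e-08) and CTSK (log2FC -2.37 ± 0.18, adjusted p = 3.89e-08) fell. Of 81 cytosolic ribosomal protein genes, 43 rose and 9 fell. Against VC-resistant cells 0 were higher (8.71% of all genes) and 37 lower (7.08% of all genes). The latter count was 16 and 9 without VC-resistant replicates 2 and 6, and 11 and 21 without DT-resistant replicates 5 and 6. RPS23 and RPS14 rose by 0.54 and 0.50.

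Nuclear receptors, which are ligand-controlled transcription factors, rose in 17 of 32 cases and fell in 10. NR5A1, the steroidogenic factor SF-1, had 1 count in total in the sensitive libraries and 15.1, 9.08 and 9.24 CPM in DT-resistant libraries (ratio 1537, 95% counting interval 286 to 63121; fitted log2FC 10.17, and 12.03 without sensitive replicate 2). NR4A3, an orphan receptor of the early response, was at 1.37, 1.09 and 0.957 and 16.7, 10.1 and 9.95 CPM (log2FC 3.43 ± 0.26, adjusted p = 5.61e-08), and NR3C1, the glucocorticoid receptor, at 113, 110.2 and 108 and 239.6, 226 and 199.95 CPM (log2FC 1.01 ± 0.075, adjusted p = 4.18e-08). NR3C2, the mineralocorticoid receptor, fell from 13.5, 12.9 and 12.7 to 1.74, 1.76 and 1.36 CPM (log2FC -3.00 ± 0.20, adjusted p = 1.12e-08), with NR2F2 (log2FC -1.17 ± 0.11, adjusted p = 2.98e-07) and VDR, the vitamin D receptor (log2FC -0.76 ± 0.12, adjusted p = 4.86e-05). Metallothioneins, which bind zinc and copper, fell in 4 of 6 cases and rose in 0: MT2A was at 952, 870.2 and 857 CPM in sensitive and 220.3, 275 and 357 CPM in DT-resistant libraries (log2FC -1.65 ± 0.15, adjusted p = 1.15e-06) and MT1E at 134, 131 and 146 and 38.3, 46.8 and 63.5 CPM (log2FC -1.47 ± 0.20, adjusted p = 6.03e-05). Of 17 semaphorins, which guide axons and vessels, 3 rose and 10 fell. SEMA6B went from 27.1, 34.8 and 30.4 to 1.49, 2.82 and 1.31 CPM (log2FC -4.03 ± 0.26, adjusted p = 2.15e-08) and SEMA7A from 129, 168 and 173 to 49.1, 59.9 and 52.9 CPM (log2FC -1.54 ± 0.14, adjusted p = 5.22e-07).

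**Figure D4:**
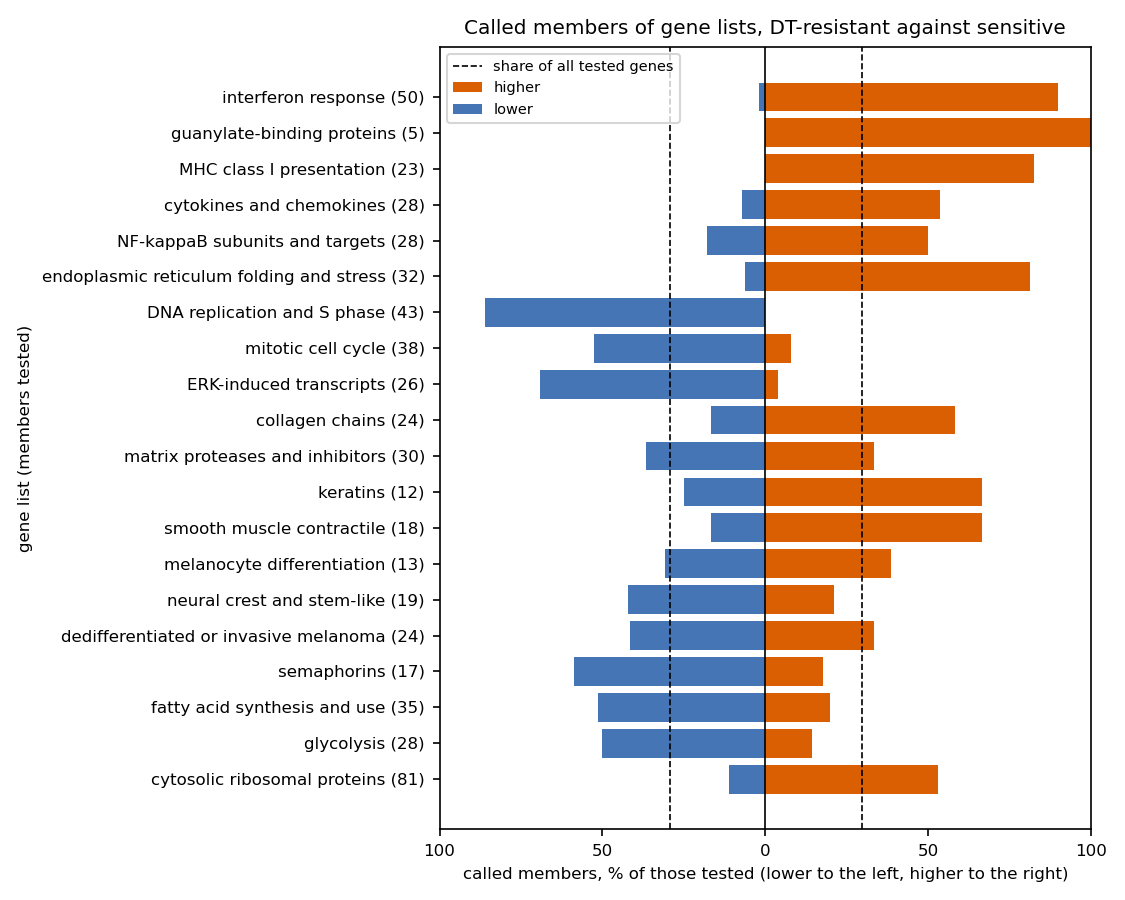
Share of tested genes that rose (bars to the right) and fell (to the left) in 20 gene groups, in percent, with the shares over all 17114 genes, 29.8% and 29.3%, as dashed lines. All 5 guanylate-binding protein genes and 45 of 50 interferon genes extend to the right, and 37 of 43 DNA replication genes to the left.

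The genes with the highest log2FC were a mixed set. UBE2QL1, a ubiquitin-conjugating enzyme relative on chromosome 5, had no count in the 3 sensitive libraries and stood at 39.7, 21.4 and 22.1 CPM in DT-resistant libraries, at least 438-fold higher against a floor of 3 counts per library. COL6A6, a collagen VI chain, was at 0 counts in sensitive libraries and 11.2, 6.28 and 6.52 CPM here, at least 126-fold higher. ACKR3, a chemokine scavenger receptor, had 1 count in sensitive cells and 36.2, 17.7 and 16.4 CPM here (ratio 3232, 95% counting interval 605 to 133197). TCIM, a regulator of WNT signalling, reached 8.74, 8.53 and 8.43 CPM from 2 counts (ratio 591, 95% counting interval 168 to 5042). The calponin gene CNN1, known from smooth muscle, reached 10.6, 5.62 and 5.48 CPM from 2 counts (ratio 499, 95% counting interval 144 to 4302). The noncoding gene ENSG00000227706 reached 11.04, 20.5 and 21.4 CPM from 3 counts (ratio 861, 95% counting interval 284 to 4027). Floors and intervals of this kind allow for counting error alone. Their fitted log2FC rose by over 0.58 when the library that held all or most of those counts was left out, to 13.10 for ACKR3 without sensitive replicate 6, 11.65 for TCIM and 11.41 for CNN1 without sensitive replicate 2, and 10.35 for ENSG00000227706 without sensitive replicate 5. LTF, the iron-binding lactoferrin, was at 0.131, 0.0992 and 0.0218 and 68.9, 46.5 and 50.5 CPM (log2FC 9.31 ± 0.28, adjusted p = 2.44e-12), PCDH18, a protocadherin, at 0.0871, 0.0794 and 0.174 and 33.5, 28.3 and 26.5 CPM (log2FC 7.997 ± 0.26, adjusted p = 6.5e-12), and the noncoding LINC00900 at 0.0218, 0.0198 and 0.0435 and 8.70, 10.5 and 10.96 CPM (log2FC 8.35 ± 0.28, adjusted p = 8.47e-12). The olfactory receptor gene OR2T8 was at 0, 0.0794 and 0.0435 and 27.4, 30.6 and 34.0 CPM (log2FC 9.42 ± 0.37, adjusted p = 6.84e-11; 10.30 without sensitive replicate 5), in a family with near copies. KRT17 and NR5A1, also in this set, are given above.

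The genes with the lowest log2FC included secreted and membrane proteins. ESM1, which encodes the proteoglycan endocan, was at 118, 126 and 99.0 CPM in sensitive libraries and at 0 counts in every DT-resistant library, at least 1724-fold lower. FSTL5, a follistatin-like protein, was at 68.1, 65.0 and 63.2 CPM in the parent and had 3 counts in all here (ratio 2992, 95% counting interval 1013 to 14359.5). The sensitive cells held 18.5 ± 6.93 CPM of the neurotensin receptor NTSR1, 8.70 ± 0.827 CPM of the zinc transporter TMEM163 and 15.4 ± 3.42 CPM of the brain-expressed gene BEX1. In DT-resistant cells NTSR1 had 1 count in all (ratio 2607, 95% counting interval 448 to 98750.1), TMEM163 had 1 (ratio 1184, 95% counting interval 211 to 46586) and BEX1 had 3 (ratio 714, 95% counting interval 237 to 3364). Without DT-resistant replicate 2 the fitted log2FC moved to -12.19 for FSTL5, -12.75 for NTSR1 and -10.10 for BEX1, and without replicate 5 to -11.67 for TMEM163. SPNS2, a transporter of sphingosine 1-phosphate, was at 33.9, 30.8 and 25.3 and 0, 0.176 and 0.0230 CPM (log2FC -8.77 ± 0.41, adjusted p = 1.25e-09; -8.17 without DT-resistant replicate 2 and -11.09 without replicate 5), and HAS2, a hyaluronan synthase, at 18.4, 16.4 and 15.0 and 0.0638, 0.0441 and 0.0461 CPM (log2FC -8.26 ± 0.55, adjusted p = 5.89e-08). PTPRD, a receptor phosphatase (log2FC -8.18 ± 0.43, adjusted p = 1.45e-09; -11.76 without DT-resistant replicate 2), and IL13RA2, a decoy receptor for an interleukin (log2FC -8.14 ± 0.56, adjusted p = 1.34e-07; -7.55 without it), fell. EMILIN1, LAMA5 and SFRP1 completed the set and are given above.

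Changed genes also lay next to each other on the chromosomes. Positions are those of the authors' table (hg38). Windows of 20 successive tested genes in which at least 16 were called in the same direction merged into 13 blocks, 5 higher and 8 lower. On chromosome 2, 30 of 37 genes between 8721081 and 18560679 were lower (median log2FC -1.12), 24 of 29 between 20684014 and 26781231 (-0.73), and 49 of 59 between 37641882 and 54305300 (-0.98). YWHAQ, a 14-3-3 protein, was at 475, 570.1 and 594 CPM in sensitive and 134, 157 and 167 CPM in DT-resistant libraries (log2FC -1.84 ± 0.096, adjusted p = 1.07e-09) in the first block, which also holds RRM2, the reductase gene described with DNA replication. In the third, EML4, a microtubule-binding protein, was at 88.6, 89.0 and 93.1 and 12.3, 14.8 and 13.2 CPM (log2FC -2.75 ± 0.083, adjusted p = 2.44e-12) and LRPPRC, a mitochondrial RNA-binding protein, at 489.7, 492 and 508 and 151, 167 and 160.2 CPM (log2FC -1.64 ± 0.061, adjusted p = 2.79e-11). The longest run of successive genes called in the same direction, 14 genes from 39736060 to 44361862, lay there, with a median of -2.01. Over chromosome 2 as a whole 42.9% of 1159 tested genes were lower and 19.6% higher.

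On chromosome 17, 38 of 47 genes between 508503 and 3669668 were lower (-0.71), and 16 of 20 between 5105541 and 6651634 (-0.70). ABR, a regulator of small GTPases (log2FC -0.99 ± 0.073, adjusted p = 3.86e-08), SMG6, an endonuclease of RNA decay (log2FC -1.13 ± 0.087, adjusted p = 5.61e-08), and TSR1, a ribosome assembly factor (log2FC -0.71 ± 0.066, adjusted p = 3.63e-07), had the smallest adjusted p-values of the first of them. The remaining lower blocks were on chromosome 4 from 1692731 to 3040760 (16 of 20 genes, -0.62), chromosome 5 from 25087450 to 33468091 (16 of 20, -0.91) and chromosome 10 from 116671192 to 119944657 (19 of 23, -0.62). Over chromosome 10 as a whole 45.3% of 667 genes were lower.

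Higher blocks lay on chromosome 13 from 108251240 to 113554590 (24 of 30 genes, 1.11), chromosome 6 from 108041409 to 110815958 (17 of 20, 0.53) and from 118460772 to 127288567 (20 of 26, 0.92), chromosome 5 from 150000046 to 151772532 (18 of 23, 0.58) and chromosome X from 118346073 to 120630054 (22 of 26, 0.75). TMCO3, a membrane protein gene in the chromosome 13 block, was at 43.5, 42.2 and 41.0 CPM in sensitive and 87.4, 80.0 and 85.5 CPM in DT-resistant libraries (log2FC 1.00 ± 0.071, adjusted p = 2.52e-08), ANKRD10 at 17.7, 15.9 and 18.1 and 60.2, 41.8 and 39.6 CPM (log2FC 1.46 ± 0.13, adjusted p = 1.75e-07), and LAMP1, a lysosomal membrane protein, rose as well (log2FC 0.73 ± 0.11, adjusted p = 3.02e-05). The chromosome X block holds LAMP2 and RPL39, and the chromosome 5 block CD74 and RPS14, genes of groups described above. NCOA7, a nuclear receptor coactivator in the second chromosome 6 block, rose from 37.8 ± 0.990 to 123 ± 1.80 CPM (log2FC 1.71 ± 0.063, adjusted p = 2.38e-11).

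Median log2FC of the 13 blocks against VC-resistant cells lay between -0.11 and 0.10. Against EB-resistant cells the chromosome 17 block from 508503 was lower in 33 of 47 genes (median -0.59) and the chromosome 6 block from 118460772 was higher in 19 of 26 (0.64). Shorter blocks came out with windows of 10 genes and at least 8 called. On chromosome 12 between 52022832 and 52321398, 9 of 12 tested genes were higher (median 1.77), the keratins KRT80 and KRT7 among them, and on chromosome 19 between 19900913 and 21196053, 10 of 13 tested genes were higher (3.21), among them the zinc finger gene ZNF626. On chromosome 1 between 88852633 and 89426243, 8 of 10 tested genes were higher (1.46), among them the 5 guanylate-binding protein genes tested. Other shorter blocks hold genes named above. On chromosome 9 between 98807670 and 100099000, 8 of 8 tested genes were higher (0.77), among them TGFBR1, COL15A1 and NR4A3. On chromosome 5 between 95861786 and 97183247, 8 of 10 were higher (0.8), ERAP1 and ERAP2 among them. On chromosome 20 between 31664452 and 32335011, 9 of 10 were lower (-0.62), BCL2L1 and TPX2 among them. TP53I3 lay in the chromosome 2 block from 20684014. Keratin, zinc finger and guanylate-binding protein genes have near copies. Copy number was not measured, and its part in these blocks was not tested.

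**Figure D5:**
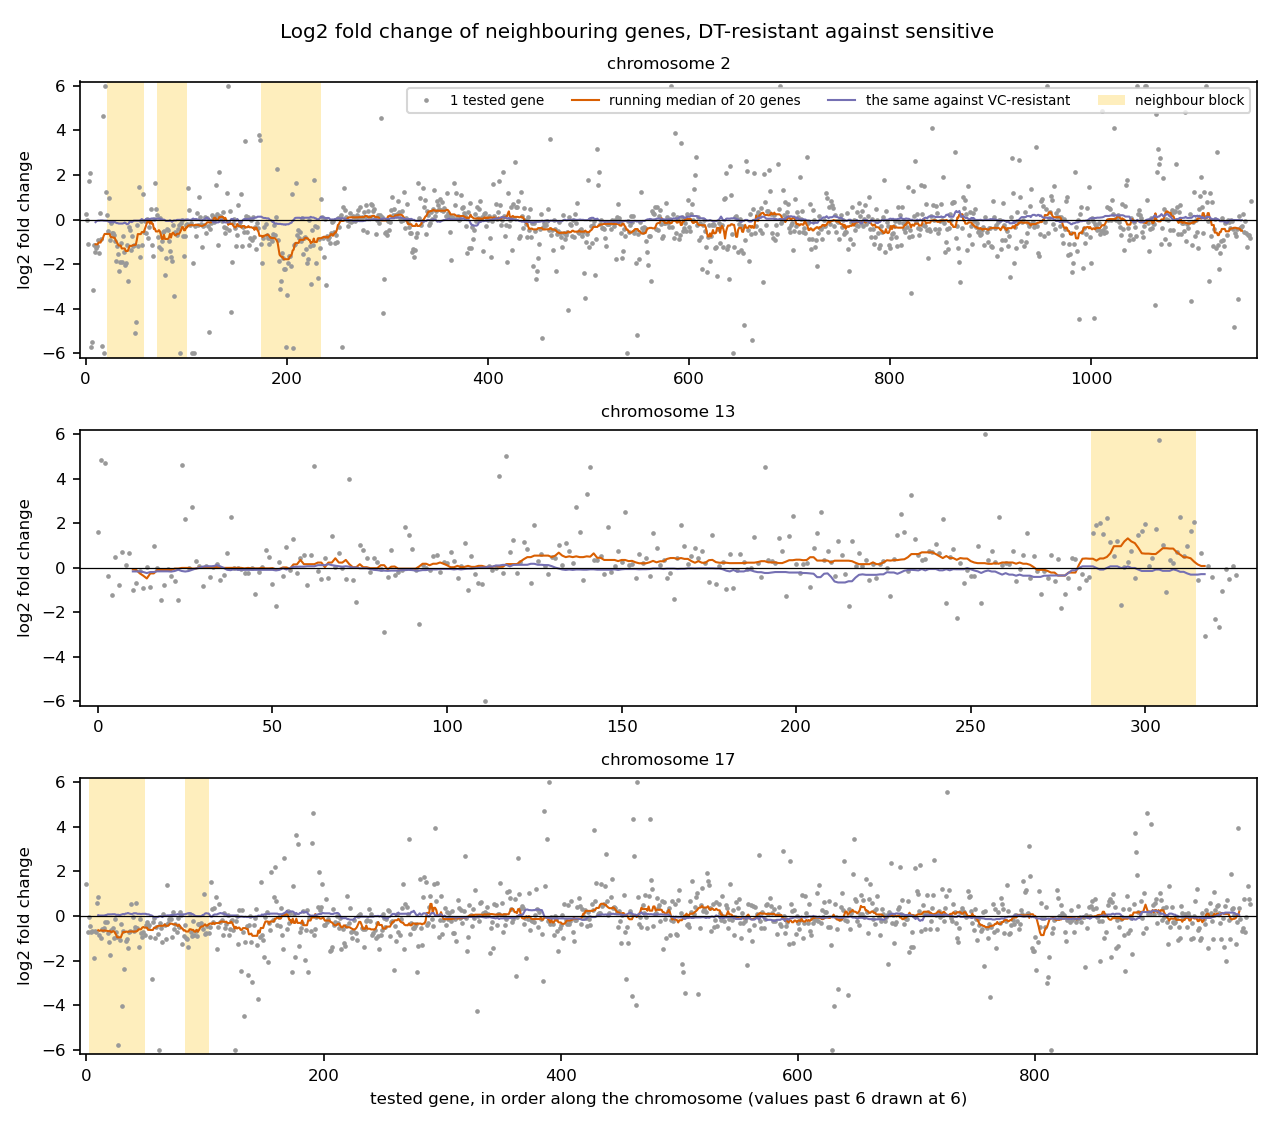
Log2FC of DT-resistant against sensitive cells for every tested gene of chromosomes 2, 13 and 17 in gene order (grey points, values past 6 drawn at 6), with running medians over 20 genes against sensitive (orange) and VC-resistant cells (purple) and the blocks shaded. The orange line lies below 0 over the shaded blocks of chromosomes 2 and 17 and above 0 over that of chromosome 13, while the purple line stays near 0.

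Fewer genes separated the DT-resistant line from the VC-resistant line than from the EB-resistant line. Against VC-resistant cells 15.8% of genes differed, 1491 higher and 1211 lower, and against EB-resistant cells 57.2%, 4922 higher and 4865 lower. By at least 2-fold, 2.81% were higher and 1.82% lower than in VC-resistant cells, and 8.92% and 12% than in EB-resistant cells. OR2T8 was higher than in VC-resistant cells (log2FC 6.55 ± 0.28, adjusted p = 5.14e-09). KRT17 (log2FC 5.51 ± 0.59, adjusted p = 0.000276; 4.90 without DT-resistant replicate 2, 6.36 without VC-resistant replicate 2) and COL6A6 (log2FC 4.77 ± 0.56, adjusted p = 0.000316; 5.81 without VC-resistant replicate 2) were higher too. KCNJ15, a potassium channel, was at 20.7, 17.9 and 18.6 CPM in DT-resistant and 1.08, 0.594 and 0.672 CPM in VC-resistant libraries (log2FC 4.63 ± 0.26, adjusted p = 2.11e-08), and at 1.33, 2.62 and 2.09 CPM in sensitive ones. FPR1, a receptor for formylated peptides, was at 9.02, 7.60 and 7.88 and 0.262, 0.550 and 0.373 CPM in the same order (log2FC 4.35 ± 0.41, adjusted p = 8.07e-06), and CRISPLD2, a secreted protein, at 28.6, 6.17 and 5.41 and 1.08, 0.616 and 0.709 CPM (log2FC 4.08 ± 0.69, adjusted p = 0.00314; 2.87 without DT-resistant replicate 2).

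CAVIN2, a coat protein of caveolae, was at 0.106, 1.15 and 1.45 CPM in DT-resistant and 30.0, 53.7 and 54.3 CPM in VC-resistant libraries (log2FC -5.69 ± 0.59, adjusted p = 0.000213), and OXTR, the oxytocin receptor, at 16.8, 9.98 and 12.7 and 193, 101 and 109 CPM (log2FC -3.35 ± 0.29, adjusted p = 4.13e-05). PPP2R2B, a phosphatase subunit (log2FC -4.11 ± 0.20, adjusted p = 5.62e-09), SNCAIP, a synuclein-binding protein (log2FC -3.39 ± 0.25, adjusted p = 4.52e-07), and LAMA4, a laminin chain (log2FC -3.14 ± 0.30, adjusted p = 3e-05), were lower than in VC-resistant cells. SNCAIP was at 11.5, 12.8 and 9.68 CPM in sensitive and 0.553, 1.04 and 1.34 CPM in DT-resistant libraries, without overlap. ENSG00000227706 was at 66.3, 165 and 181 CPM in VC-resistant libraries, above its DT-resistant level (log2FC -2.97 ± 0.39, adjusted p = 0.000864).

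Against EB-resistant cells, GTSF1, a germline factor, was at 39.9, 41.0 and 43.2 CPM in DT-resistant libraries and at 0 counts in EB-resistant ones, and ASTN1, a neuronal adhesion gene, at 11.7, 7.78 and 8.08 CPM and 0 counts. CYRIA, a regulator of actin, was at 8.62 ± 1.02 CPM against 0.007003 ± 0.0121 CPM, and the zinc finger gene ZNF626 at 5.85 ± 0.570 CPM against 0.007003 ± 0.0121 CPM. TFAP2B, a neural crest factor, was at 0 counts in DT-resistant and sensitive libraries and at 17.2 ± 1.66 CPM in EB-resistant ones. VSIR, an immune checkpoint (12.5 ± 0.616 CPM in EB-resistant cells), PNMA8A (11.4 ± 1.46 CPM), COX7A1, a respiratory chain subunit (10.8 ± 2.03 CPM), SDR42E1 (6.44 ± 0.557 CPM) and SLC17A9, a nucleotide transporter (6.09 ± 0.420 CPM), were at 0 counts in every DT-resistant library. These genes were called in edgeR's quasi-likelihood test with adjusted p of at most 1.49e-08. NRF2 antioxidant genes, which counter oxidative stress, differed as a group. Of 30, 2 were higher (28.8% of all genes) and 19 lower (28.4% of all genes) than in EB-resistant cells. Only 1 was higher without DT-resistant replicates 5 or 6 or EB-resistant replicates 5 or 6. Against sensitive cells 14 rose and 4 fell.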

How the data were processed

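Poly(A) RNA of 12 cultures was sequenced in pairs from strand-specific libraries. Per the submitters' processing notes, reads were aligned to hg38 with STAR 2.7.10b and counted with featureCounts 2.0.1; which strand setting and annotation release they used is not stated there. The deposited raw counts per gene were used, without further normalization by the authors. The authors' deposited normalised signal equals these counts divided by a size factor per library (within 0.05) and was not tested.

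Genes passing filterByExpr over the 4 groups (17114) were scaled by TMM and fitted with edgeR 4.0.16 in R 4.3.3 (glmQLFit, robust, 4 group means, all 12 libraries), with Benjamini-Hochberg adjustment over all of them. Standard errors are the fold change over the root of F, and CPM use TMM-scaled totals. An exact permutation test of 3 against 3 cannot go below 0.1, so none is given. Replicate libraries differed by more than sampling noise and were counted separately; the labels describe 3 independent experiments. Same-numbered DT-resistant and VC-resistant libraries deviated together (r = 0.337, 0.151 and 0.195), a hint of pairing from the data alone. Values given against VC-resistant cells nevertheless come from the unpaired fit of group means. With the replicate number as a block, 3514 genes in place of 2702 differed between those 2 lines. RefSeq promoters were matched by symbol. Other motifs were searched in other groups, with shares above and below those of all promoters. The letters TTTGAA were in 22 of 32 promoters of mitotic genes (15.2% of all promoters). The ETS site CCGGAAGT was in 0 of 17 promoters of ERK-induced genes (4.14% of all promoters).

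The comparison, gene lists, families and alternatives were chosen with earlier results of these data known. Named genes are, by rule, the 12 highest and 12 lowest log2FC among called genes (5 CPM or more throughout the higher group), 6 and 6 against each other line, up to 4 called members per direction of each list by adjusted p, all cascade and ERK-induced genes, and up to 6 per block. These were chosen after their values were seen: B2M, BST2, CALR, CCL20, CCL5, CD274, CRELD2, CXCL8, FASN, HERPUD1, HLA-B, HLA-C, HLA-F, HSP90B1, HSPA5, IFI44L, IFI6, IFIT2, IL6, ISG15, MCM6, MKI67, MMP1, MMP2, MX1, OAS1, OAS2, PMEL, RFC4, SCD, STAT2, TAP1, TP63, TYRP1 and XBP1. Marker genes named as untested or at a low level come from the lists. Some items within the rule are not reported here. Alternatives were RLE factors, DESeq2 1.42.0, no filter, a replicate block, the 6 libraries alone, leaving out each library, and other windows.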

Additional observations from a re-analysis of the deposited data

Results flagged for a closer look

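For 9 genes of the text the DT-resistant libraries and those of another resistant line lay on opposite sides of the sensitive libraries. The difference of that other line from sensitive cells was not tested and rests on non-overlap of 3 libraries with 3. Between DT-resistant and sensitive cells, 32% of all genes lay wholly above and 31.7% wholly below. How many of all genes meet the conditions below was not counted. In each case no libraries of the 2 lines and the parent overlapped, all 3 means were at least 1 CPM, and the direct difference between the lines was at least 4-fold and passed edgeR's quasi-likelihood test. Genes with a group below 1 CPM on average were left out of this selection, which was made after the values were seen.

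WNT5A, the noncanonical WNT ligand, was at 91.4 ± 2.48 CPM in sensitive, 262 ± 35.2 CPM in DT-resistant, 64.8 ± 6.99 CPM in VC-resistant and 64.9 ± 15.3 CPM in EB-resistant cells, a log2FC of 2.02 against VC-resistant cells (adjusted p = 3e-06) and 2.01 against EB-resistant cells (adjusted p = 3.16e-07). CD74, the invariant chain, was at 24.0 ± 1.42 CPM in VC-resistant and 6.94 ± 1.22 CPM in EB-resistant cells against 116 ± 76.0 CPM here (2.27, adjusted p = 0.00439, and 4.06, adjusted p = 3.59e-05). The 3 DT-resistant libraries were at 202, 86.9 and 58.4 CPM. LAMA4, a laminin chain, was at 10.4 ± 0.215 CPM in sensitive, 3.83 ± 0.765 CPM in DT-resistant and 33.6 ± 8.17 CPM in VC-resistant cells (-3.14, adjusted p = 3e-05).

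The other genes ran against the EB-resistant line. CD274, which encodes PD-L1, was at 41.6 ± 6.58 CPM there and 275 ± 24.6 CPM in DT-resistant cells (2.73, adjusted p = 1.5e-06), and MAFF at 16.5 ± 4.85 and 125 ± 10.7 CPM (2.92, adjusted p = 1.1e-05). ITGB3, an integrin chain, was at 1.93 ± 0.365 and 25.2 ± 5.84 CPM (3.70, adjusted p = 3.42e-07), and the protease CTSS at 9.96 ± 0.764 and 40.6 ± 4.93 CPM (2.03, adjusted p = 1.16e-09). CTSK, another cathepsin, was at 19.1 ± 1.70 and 1.55 ± 0.390 CPM (-3.61, adjusted p = 7.18e-10), and FABP5, a fatty acid carrier, at 15.2 ± 1.54 and 3.06 ± 0.407 CPM (-2.31, adjusted p = 3.79e-09).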

How the results depend on the processing

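In DT-resistant against sensitive cells 10116 genes changed; RLE size factors gave 10123, no filter on low counts 10500, a fit of the 6 libraries alone 9210, DESeq2 10208, and leaving out 1 library at a time 9088 to 9914. Against VC-resistant cells the count of 2702 was 2684, 2536, 1913 and 3186 under the same settings, and 1722 (without VC-resistant replicate 6) to 2819 with 1 library left out. Against EB-resistant cells 9787 genes changed, and 8756 to 10344 under the alternatives. Every gene called both as reported and under an alternative kept its direction. The 13 blocks of neighbours became 110 with windows of 10 genes, which are shorter, and 17 with protein-coding genes only. Of 322 named genes called against sensitive cells, 311 were called in every setting in which they could be tested, and no named value reversed.

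With the replicate number as a block, 10585 genes changed against sensitive, 3514 against VC-resistant and 10344 against EB-resistant cells. Over all tested genes, deviations of same-numbered libraries from their group means correlated weakly. The values were 0.0708, 0.0449 and 0.0445 between DT-resistant and sensitive cells and 0.0835, 0.034 and 0.11 between DT-resistant and EB-resistant cells. Against sensitive cells each DT-resistant library correlated best with its own number, a hint from the data and not from the design. Some groups moved together by number. Replicate 2 was lowest for 43 of 43 DNA replication genes in sensitive and 41 of 43 in DT-resistant cells. Replicate 6 was highest for 28 of 38 mitotic genes in each. Mitochondrially encoded mRNAs did not follow, with 13 of 13 highest in sensitive replicate 5 and 12 of 13 in DT-resistant replicate 2. Under the block 9 in place of 4 mitochondrially encoded mRNAs fell, 1 rose, and IER3 was called higher (log2FC 0.27). EGR1 was not called against EB-resistant cells (log2FC -2.41, adjusted p = 0.0621). The block changed no other call of a named gene against the other lines.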
